A study of Homo sapiens with 45 samples.

Results

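The 39 genes described here are those of glycolysis and of the transcriptional response to low oxygen, among the 57353 gene symbols of the count table. They were taken by name. The glycolytic class holds 23 genes, for the uptake of glucose, its breakdown to pyruvate and lactate, and the switches of that route. The other 16 are hypoxia genes outside glycolysis, the oxygen-labile factors and their hydroxylases included. Messenger RNA was sequenced from 45 libraries of 3 human breast cancer cell lines, 5 groups of 3 libraries in each line, in a study of how lobular and ductal carcinoma cells respond to estrogen and what part the estrogen receptor, FOXA1 and MDC1 have in it. The lobular lines are MDA-MB-134-VI, called MM134 here, and MDA-MB-330, called MM330, and HCC1428 is a ductal line, so that lobular cells are represented by a pair of lines and ductal cells by a single one. All 15 groups were kept 3 days without hormone in charcoal-stripped serum and received an siRNA (a short RNA duplex that directs the degradation of a matching transcript) 24 h before treatment. Cells of siNT had a non-targeting siRNA and vehicle (0.01% ethanol). Cells of siNT_E2 had that siRNA and, for 24 h, 100 pM estradiol (E2), which activates the estrogen receptor. In siER_E2, siFOXA1_E2 and siMDC1_E2, E2 was combined with siRNA to ESR1 (the gene of the receptor), to FOXA1 (a pioneer factor of luminal cells) or to MDC1 (a scaffold protein of the DNA damage response). Every knockdown group therefore also carries E2, and the labels name no treatment with low oxygen.

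Glycolysis turns glucose into pyruvate in the cytosol, and many tumour cells then reduce much of the pyruvate to lactate and export it. The factors encoded by HIF1A and EPAS1 pair with ARNT on DNA and raise most glycolytic genes together with genes for vessel growth, acid balance and the removal of mitochondria. With enough oxygen, hydroxylases of the EGLN family mark these factors for destruction through VHL. In breast epithelium, estrogen drives growth, and the supply of glucose and the handling of pyruvate are part of that programme.

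The promoters of 4 members are printed because these members carry the patterns described below: LDHA and BHLHE40 moved in opposite directions in different lines with E2, BNIP3 fell with E2 in MM330 and rose in MM134, and EGLN3 had the largest falls with E2 in both lobular lines. Each is the 250 bases before the start of the gene in RefSeq (build GRCh38.p14), written 5′ to 3′ on the strand of the gene. Capitals mark ACGTG or GCGTG, the core bound by the factors of HIF1A and EPAS1 with ARNT, on the printed strand, or CACGT or CACGC where the core lies on the other strand, so that CACGTG counts as 2 overlapping matches. The windows are chr11:18394313-18394562, forward strand for LDHA, chr10:131981924-131982173, reverse strand for BNIP3, chr3:4979187-4979436, forward strand for BHLHE40 and chr14:33951075-33951324, reverse strand for EGLN3.
LDHA: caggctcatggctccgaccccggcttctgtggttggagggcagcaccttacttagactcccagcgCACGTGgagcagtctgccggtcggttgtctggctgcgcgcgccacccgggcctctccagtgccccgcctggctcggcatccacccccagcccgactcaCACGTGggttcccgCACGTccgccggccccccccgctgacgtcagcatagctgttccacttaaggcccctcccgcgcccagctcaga
BNIP3: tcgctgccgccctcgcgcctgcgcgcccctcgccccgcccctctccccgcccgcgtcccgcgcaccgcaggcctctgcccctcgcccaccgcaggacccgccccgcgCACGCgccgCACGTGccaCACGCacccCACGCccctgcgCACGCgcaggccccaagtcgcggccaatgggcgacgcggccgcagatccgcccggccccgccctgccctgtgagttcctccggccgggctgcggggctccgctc
BHLHE40: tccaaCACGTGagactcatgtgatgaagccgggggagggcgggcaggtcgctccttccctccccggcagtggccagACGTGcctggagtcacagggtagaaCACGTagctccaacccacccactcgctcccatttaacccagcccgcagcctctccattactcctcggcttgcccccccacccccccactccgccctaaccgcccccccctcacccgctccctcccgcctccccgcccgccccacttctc
EGLN3: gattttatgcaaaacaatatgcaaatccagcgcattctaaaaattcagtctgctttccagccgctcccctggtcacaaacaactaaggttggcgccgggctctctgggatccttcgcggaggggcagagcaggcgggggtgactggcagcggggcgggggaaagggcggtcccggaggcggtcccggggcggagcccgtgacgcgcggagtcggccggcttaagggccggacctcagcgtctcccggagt

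The window of LDHA held 5 matches, that of BNIP3 6, that of BHLHE40 4 and that of EGLN3 0. RefSeq promoters were matched by symbol for 36 of the 39 members, as windows of 300 bases (250 before and 50 after the start). Either core, on either strand, was present in 26 of them, 16 of 23 in the glycolytic class and 10 of 13 among the other hypoxia genes. The same search found a match in 48.4% of all 35116 promoters of that length. The palindromic estrogen response element (GGTCA, 3 bases of any kind, TGACC) was in 0 of the 36 member windows and in 0.1% of all promoters. These are matches of letters in a short window and were not linked to the changes below.

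Libraries of MM134 held 24752248 to 36738812 counts in total, those of MM330 21043426 to 36566663, and those of HCC1428 23157548 to 35115207. Whether the libraries of a group are separate cultures is not in the labels, and p-values cover only the spread among these libraries, which may be technical. In bulk RNA, fewer cells expressing a gene and less of its RNA per cell cannot be told apart. The targeted transcripts were lower in their own knockdown groups. ESR1 stood at 532, 284 and 426 mean CPM (counts scaled to a common library total) in siNT_E2 of MM134, MM330 and HCC1428 and at 60.2, 22.2 and 217 in siER_E2, so the knockdown was shallowest in HCC1428. FOXA1 went from 437, 500.5 and 279 to 111, 138 and 91.4 CPM, and MDC1 from 173, 201 and 173 to 40.0, 41.2 and 45.5 CPM. ESR1 itself stood at 108 and 120.4 CPM in siFOXA1_E2 and siMDC1_E2 of MM134 and at 207 and 147 CPM in those groups of MM330, below siNT_E2 of the same line. In HCC1428 it was at 391 and 394 CPM there. MDC1 was lower than in siNT_E2 also in siER_E2, at 110.1, 102 and 78.4 CPM in the same order of lines, and in siFOXA1_E2 (135, 123 and 95.2). FOXA1 was higher in siER_E2, at 531, 571 and 442 CPM. All 10 luminal epithelial markers examined reached 1 CPM in each line, with summed group levels of 7406 to 19320 CPM. None of 10 immune markers did, COL1A1 was the only one of 10 fibroblast markers (summed levels of 22.9 to 117 CPM), and ESAM and VWF were the only 2 of 10 endothelial markers, in MM330 and HCC1428 (at most 10.1 CPM summed, 2.21 to 9.90 CPM in the groups of HCC1428, where both were called higher with E2 and lower with the ESR1 and FOXA1 siRNAs). Their part in the results below was not tested. Processed pseudogenes took 0.337% to 0.494% of the counts in 11 libraries and 0.123% to 0.158% in the other 34, with 2 of the higher ones in MM134, 4 in MM330 and 5 in HCC1428.

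A pair of MM330 libraries stood apart in the members themselves. Replicate 3 of MM330 siNT held the highest value of its group for 29 of the 36 members at 1 CPM or more, and replicate 1 of MM330 siFOXA1_E2 for 25 of 36. Against the mean of the other 2 libraries of its group, siNT replicate 3 was higher on the log2 scale by 0.69 in LDHA, 0.69 in BNIP3, 0.62 in PFKFB3 and 0.52 in NDRG1. The siFOXA1_E2 replicate 1 was at least 0.5 away in 11 members, from 1.08 in PDK1 to -0.65 in EPAS1. In every other library at most 2 members were that far away. Neither of the pair was among the libraries with more pseudogene counts. Results in MM330 were therefore recomputed without both libraries, and calls that changed, or called values that moved by more than 1.5 times, are given. The pair was picked on these same members, which favours small spread and new calls (27 gained, 2 lost). Adjusted p without it depends on that choice and is left out for gained calls.

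**Figure D1:**
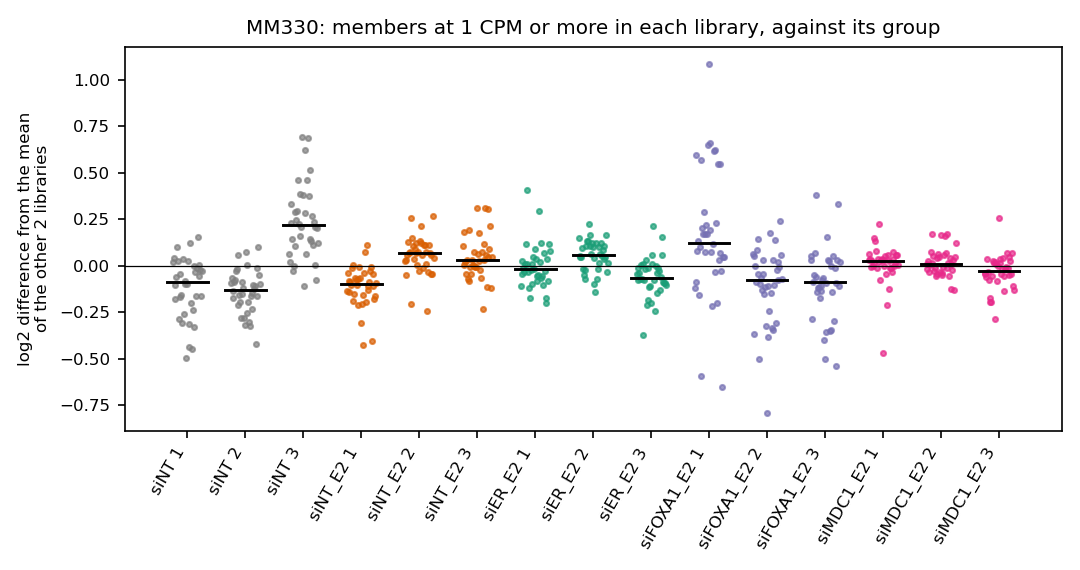
Log2 difference of each member (points; 1 CPM or more in the group mean) from the mean of the other 2 libraries of its group, for the 15 MM330 libraries on the horizontal axis; bars are medians over members. The points of siNT replicate 3 lie mostly above 0 and those of siFOXA1_E2 replicate 1 spread from -0.65 to 1.08.

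Levels of different genes were compared per kilobase of exon, in siNT_E2. GAPDH, which oxidises a triose phosphate, was the most abundant member in each line, at 780.2, 702 and 1029 CPM per kilobase in MM134, MM330 and HCC1428. The second place was taken by the glucose transporter gene SLC2A1 in MM134 (208 CPM per kilobase), by the pyruvate kinase gene PKM in MM330 (151) and by the triose isomerase gene TPI1 in HCC1428 (164). SLC2A1 ranked only 8 in MM330 (50.9) and 7 in HCC1428 (64.1). Among the lowest, the pyruvate dehydrogenase kinase gene PDK1 was at 0.380, 0.328 and 0.430 CPM per kilobase. A further 3 members were at or near the lower limit. CA9, the cell-surface carbonic anhydrase that is among the most used hypoxia markers, had 0 counts in all 15 libraries of HCC1428, which allows a level of up to 0.00679 CPM over the line (3 counts; counting error only). It had 2 counts in 1 library of MM330 and none in the other 14, and it ranged from 0 to 0.447 CPM in MM134. LDHB, a subunit of lactate dehydrogenase, had 0 counts in all 15 libraries of MM134 and of MM330 (up to 0.00671 and 0.00689 CPM by the same limit). In HCC1428, LDHB read 0.936, 0.847 and 0.916 CPM in siNT, 1.53, 0.705 and 2.16 in siNT_E2, 1.11, 0.924 and 0.479 in siER_E2, 1.18, 1.18 and 1.15 in siFOXA1_E2 and 1.09, 0.935 and 1.57 in siMDC1_E2, with overlap in every comparison. It was called lower with the ESR1 siRNA (log2 fold change -0.87 ± 0.34, adjusted p = 0.041). The peptide hormone gene ADM had 4 to 16 counts per group in MM330. CA9 was therefore tested in no line, LDHB in HCC1428 alone and ADM in MM134 and HCC1428, while the other 36 members passed the filter on low counts in all lines. LDHB with the ESR1 siRNA in HCC1428 lost its call without siNT_E2 2 or 4 or siER_E2 2 or 3 (-0.46, adjusted p = 0.33) and with the lower-pseudogene libraries alone or the compared libraries alone.

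The main question was how the members change with E2 and with each knockdown under E2. Counts were compared within a line by edgeR's quasi-likelihood test with Benjamini-Hochberg adjustment over all genes tested, and calls needed an adjusted p below 0.05. The 3 knockdown comparisons and the E2 comparison of a line share the siNT_E2 libraries, so their values are given side by side and no agreement between them is read. With E2, the glycolytic class was called mostly higher in MM134 and HCC1428 but more often lower in MM330. In MM134, 17 of the 22 tested glycolytic genes were called higher and 2 lower, beside 27.2% and 27.2% of all genes tested there, with a median log2 fold change of 0.43 against -0.03 over all genes. MM134 had 3 higher and 5 lower calls among the 15 other hypoxia genes tested (median -0.12). In MM330, 4 of the 22 tested glycolytic genes were called higher and 8 lower, beside 13.7% and 12.6% of all genes tested there, with a median log2 fold change of -0.15 against 0.00 over all genes. MM330 had 3 higher and 7 lower calls among the 14 other hypoxia genes tested (median -0.27). In HCC1428, 17 of the 23 tested glycolytic genes were called higher and 2 lower, beside 29.1% and 25.7% of all genes tested there, with a median log2 fold change of 0.48 against -0.03 over all genes. HCC1428 had 3 higher and 8 lower calls among the 15 other hypoxia genes tested (median -0.21).

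Without both MM330 libraries that stood apart, the E2 comparison of MM330 gave 6 glycolytic genes higher and 8 lower (median -0.07) and 3 other hypoxia genes higher and 7 lower (median -0.21), beside 27% of all genes called in either direction. Members called with E2 in the same direction in all 3 lines were PFKP, SLC2A1 and P4HA2 (higher) and HK2, EGLN3, KDM3A and NDRG1 (lower). Of all genes tested in the 3 lines, 8.36% were called higher and 6.56% lower in all of them. Opposite calls between lines, which 8.42% of all genes had, were made in 8 of 22 glycolytic genes (ENO1, ENO2, GPI, HK1, LDHA, PFKM, PGK1 and SLC16A3) and 3 of 14 other hypoxia genes (BHLHE40, BNIP3 and HIF1A).

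With the ESR1 siRNA, the glycolytic class was called mostly lower in MM134 and HCC1428. In MM134, 2 of the 22 tested glycolytic genes were called higher and 17 lower, beside 29.3% and 27.9% of all genes tested there, with a median log2 fold change of -0.38 against 0.04 over all genes. MM134 had 6 higher and 3 lower calls among the 15 other hypoxia genes tested (median 0.07). In MM330, 2 of the 22 tested glycolytic genes were called higher and 7 lower, beside 15.1% and 17.4% of all genes tested there, with a median log2 fold change of -0.13 against 0.00 over all genes. MM330 had 2 higher and 5 lower calls among the 14 other hypoxia genes tested (median -0.12). In HCC1428, 2 of the 23 tested glycolytic genes were called higher and 19 lower, beside 22.5% and 28.7% of all genes tested there, with a median log2 fold change of -0.38 against -0.01 over all genes. HCC1428 had 8 higher and 4 lower calls among the 15 other hypoxia genes tested (median 0.14). Without both libraries, the MM330 comparison gave 2 glycolytic genes higher and 10 lower (median -0.12) and 3 other hypoxia genes higher and 7 lower (median -0.12), beside 37.3% of all genes called in either direction. HK2 and MXI1 were called higher in all 3 lines, and PFKFB3, PFKL, PKM and SLC2A1 lower, beside 7.39% and 10.3% of all genes. HK2 in MM134 and MM330 and MXI1 in MM330 lost the call under settings named below. PFKL with the ESR1 siRNA in MM330 lost its call without siNT_E2 1 or 2 or siER_E2 1, 2 or 3 (-0.11, adjusted p = 0.17) and with the lower-pseudogene libraries alone.

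With the FOXA1 siRNA, the glycolytic class moved both ways in MM134 and was called lower more often in HCC1428. In MM134, 9 of the 22 tested glycolytic genes were called higher and 10 lower, beside 27.9% and 28.5% of all genes tested there, with a median log2 fold change of -0.08 against 0.01 over all genes. MM134 had 6 higher and 4 lower calls among the 15 other hypoxia genes tested (median 0.00). In MM330, 4 of the 22 tested glycolytic genes were called higher and 5 lower, beside 24.4% and 24.6% of all genes tested there, with a median log2 fold change of -0.07 against -0.01 over all genes. MM330 had 7 higher and 3 lower calls among the 14 other hypoxia genes tested (median 0.36). In HCC1428, 5 of the 23 tested glycolytic genes were called higher and 12 lower, beside 24.1% and 29.5% of all genes tested there, with a median log2 fold change of -0.28 against -0.03 over all genes. HCC1428 had 4 higher and 7 lower calls among the 15 other hypoxia genes tested (median -0.08). Without both libraries, the MM330 comparison gave 5 glycolytic genes higher and 10 lower (median -0.16) and 7 other hypoxia genes higher and 4 lower (median 0.16), beside 49.7% of all genes called in either direction. ENO1, GPI, LDHA, SLC16A3 and BNIP3L were called higher in all 3 lines, and ENO2, PKM, SLC2A1 and HIF1A lower, beside 10.6% and 14.5% of all genes. SLC16A3 and BNIP3L in MM134 lost the call under settings named below. PKM with the FOXA1 siRNA in MM330 lost its call without siNT_E2 1 or siFOXA1_E2 2 or 3 (-0.13, adjusted p = 0.1) and with the lower-pseudogene libraries alone or the compared libraries alone.

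With the MDC1 siRNA, glycolytic genes were called lower more often than higher in MM134 and HCC1428. In MM134, 2 of the 22 tested glycolytic genes were called higher and 12 lower, beside 25.4% and 25% of all genes tested there, with a median log2 fold change of -0.16 against 0.00 over all genes. MM134 had 4 higher and 4 lower calls among the 15 other hypoxia genes tested (median 0.07). In MM330, 2 of the 22 tested glycolytic genes were called higher and 6 lower, beside 10.4% and 10.4% of all genes tested there, with a median log2 fold change of -0.07 against 0.00 over all genes. MM330 had 3 higher and 2 lower calls among the 14 other hypoxia genes tested (median 0.01). In HCC1428, 0 of the 23 tested glycolytic genes were called higher and 15 lower, beside 13.2% and 15.9% of all genes tested there, with a median log2 fold change of -0.19 against -0.01 over all genes. HCC1428 had 4 higher and 2 lower calls among the 15 other hypoxia genes tested (median 0.04). The MM330 count depended on those libraries, although neither is in a compared group: without both, it was 4 glycolytic genes higher and 9 lower (median -0.07) and 5 other hypoxia genes higher and 5 lower (median 0.01), beside 25.7% of all genes called in either direction. BNIP3L was called higher in all 3 lines, and PFKM and PKM lower, beside 4.27% and 4.29% of all genes. BNIP3L in MM330 and HCC1428 lost the call under settings named below. PFKM with the MDC1 siRNA in MM330 lost its call without siNT_E2 2 or 3 or siMDC1_E2 1 or 3 (-0.11, adjusted p = 0.12) and with the lower-pseudogene libraries alone or no filter on low counts. PKM with the MDC1 siRNA in MM330 lost its call with the lower-pseudogene libraries alone (-0.24, adjusted p = 0.064).

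**Figure D2:**
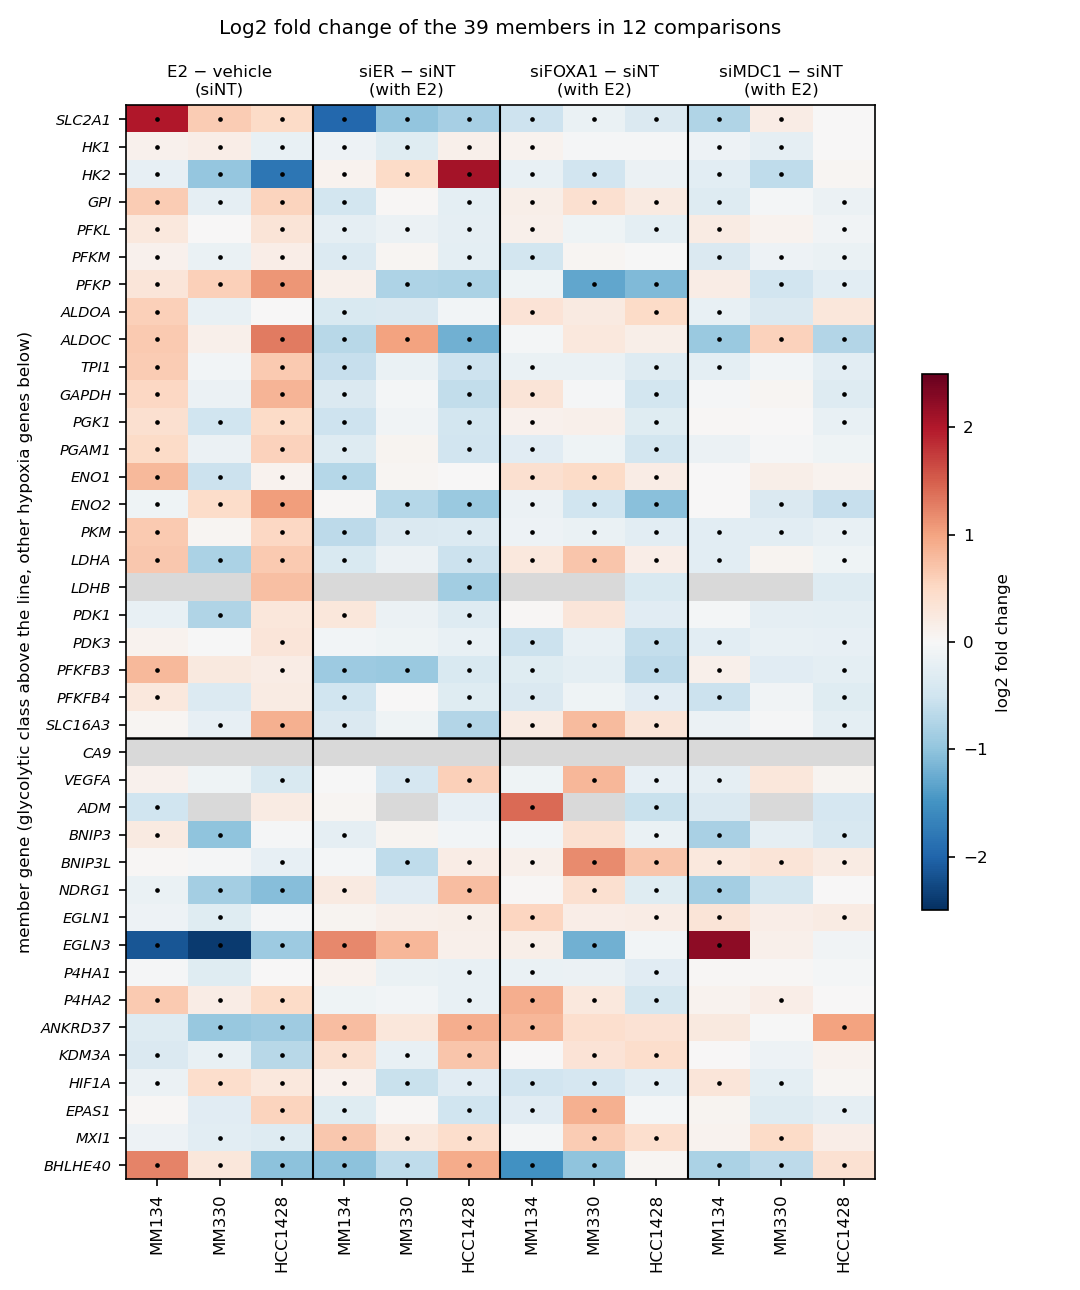
Log2 fold change (colour) of the 39 members (vertical axis) in the 12 comparisons within lines (horizontal axis), a dot marks an adjusted p below 0.05 and grey marks members that were not tested. The E2 columns of MM134 and HCC1428 are mostly red in the glycolytic class above the line, and the MM330 column is not. EGLN3 is blue with E2 in each line and red with the MDC1 siRNA in MM134 alone.

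Whether a change differed between a lobular line and HCC1428 was tested as the difference of the 2 log2 fold changes, in a fit of all 45 libraries. For the E2 response, 12 of the 37 members tested were called higher in MM134 than in HCC1428 and 8 lower, beside 26.5% of all genes called in either direction. In MM330 the E2 difference leaned one way, and 4 of the 37 members tested were called higher in MM330 than in HCC1428 and 23 lower, beside 28.3% of all genes called in either direction. In the glycolytic class, 17 of 22 E2 responses were lower in MM330 than in HCC1428 and 2 higher, with a median difference of -0.56 on the log2 scale, and 17 and 3 without both libraries (median -0.50). The largest of these differences were in LDHA at -1.46 ± 0.16 (adjusted p = 8e-10), ALDOC at -1.17 ± 0.20 (adjusted p = 7.5e-06) and SLC16A3 at -1.08 ± 0.10 (adjusted p = 5e-12). For the ESR1 siRNA, 6 of the 37 members tested were called higher in MM134 than in HCC1428 and 12 lower, beside 24.5% of all genes called in either direction. The same test in MM330 called 10 of the 37 members higher than in HCC1428 and 9 lower, beside 25.3% of all genes called in either direction.

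For the FOXA1 siRNA, 8 of the 37 members tested were called higher in MM134 than in HCC1428 and 7 lower, beside 30.5% of all genes called in either direction. In MM330 the FOXA1 siRNA gave more calls upward, where 14 of the 37 members tested were called higher in MM330 than in HCC1428 and 4 lower, beside 22.2% of all genes called in either direction. For the MDC1 siRNA, 7 of the 37 members tested were called higher in MM134 than in HCC1428 and 5 lower, beside 18.6% of all genes called in either direction. With the MDC1 siRNA in MM330, 5 of the 37 members tested were called higher in MM330 than in HCC1428 and 7 lower, beside 13.8% of all genes called in either direction. ADM is counted in these tests for MM330 also, where it had few counts, and LDHB, with no counts in the lobular lines, is not.

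The counts of the 17 enzyme genes that catalyse the steps from glucose to lactate, summed, were also read as a share of all counts of a library (SD, n = 3). In MM134 the share was 0.501% ± 0.009 in siNT and 0.664% ± 0.002 in siNT_E2. The knockdown groups of MM134 had shares of 0.534% ± 0.006 (siER_E2), 0.762% ± 0.01 (siFOXA1_E2) and 0.626% ± 0.021 (siMDC1_E2). In HCC1428 it was 0.522% ± 0.015 in siNT and 0.741% ± 0.016 in siNT_E2. The knockdown groups of HCC1428 had shares of 0.582% ± 0.009 (siER_E2), 0.603% ± 0.01 (siFOXA1_E2) and 0.643% ± 0.011 (siMDC1_E2). The siNT and siNT_E2 libraries did not overlap in either line. The highest group was siFOXA1_E2 in MM134 and siNT_E2 in HCC1428. In MM330 it ranged from 0.662% to 0.823% in siNT, from 0.627% to 0.65% in siNT_E2, from 0.558% to 0.604% in siER_E2, from 0.586% to 0.755% in siFOXA1_E2 and from 0.599% to 0.625% in siMDC1_E2, with siNT entirely above siNT_E2. Other values moved with the groups of HCC1428. Mitochondrially encoded transcripts took a mean of 12.6% of the counts in its siNT_E2 group and 15.4% to 17.3% in its other groups, and all 10 mitosis genes examined were called higher there with E2 (median 2.43 on the log2 scale). The mitosis genes had 4 higher and 1 lower calls with E2 in MM134 (median 0.08) and 7 higher and 0 lower in MM330 (median 0.46). With the ESR1, FOXA1 and MDC1 siRNAs, all 10 were called lower in HCC1428 (medians -1.44, -1.76 and -0.61), and 7, 9 and 7 of 10 in MM134 (medians -0.34, -0.51 and -0.17). In MM330, 4, 10 and 0 were called lower, and 4 higher with the MDC1 siRNA (medians -0.21, -0.91 and 0.25). Their part in the results was not tested.

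**Figure D3:**
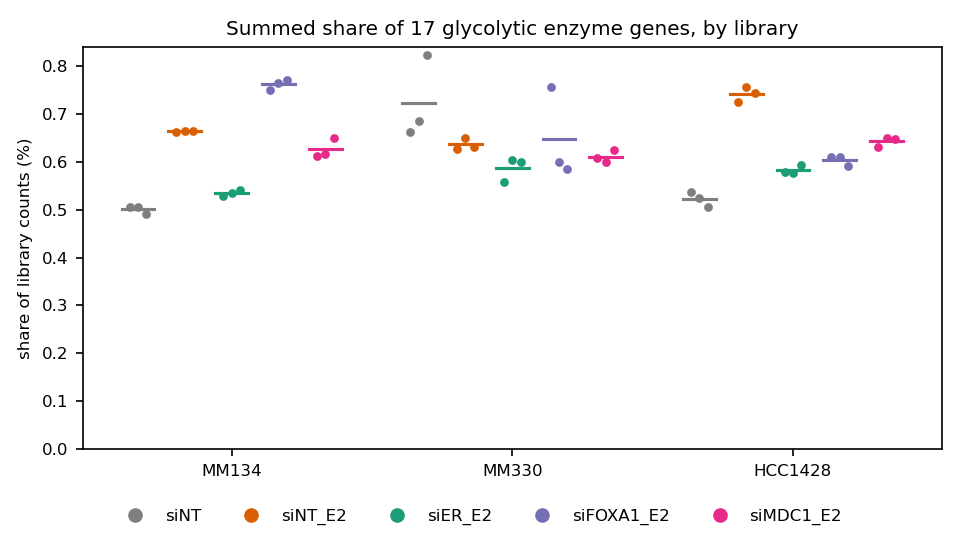
Summed share of the 17 glycolytic enzyme genes in the counts of each library (points, in percent; bars are means of 3 libraries), by line and group. In MM134 and HCC1428 every siNT_E2 library lies above every siNT library, and in MM330 the siNT libraries lie above those of siNT_E2.

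In what follows, sets of 3 log2 fold changes with their SE are in the order MM134, MM330 and HCC1428, values before a single adjusted p are log2 fold changes, and levels are CPM per library in the order of replicates. Where a call was lost when a single library was left out, each such library is named by its group and replicate number, with the value at the highest adjusted p, and other settings that ended the call follow. SLC2A1 encodes the main glucose transporter of the cell membrane. In MM134, SLC2A1 read 279, 233 and 218 CPM in siNT and 1002, 979 and 970.5 CPM in siNT_E2. In MM330, SLC2A1 read 159, 151 and 162 CPM in siNT and 226, 243 and 252 CPM in siNT_E2. In HCC1428, SLC2A1 read 236, 221 and 205 CPM in siNT and 299, 299 and 311 CPM in siNT_E2. The siNT_E2 libraries were above the vehicle libraries in each line without overlap, and the distance was widest in MM134. SLC2A1 rose with E2 in all 3 lines, with log2 fold changes of 2.00 ± 0.06, 0.63 ± 0.04 and 0.47 ± 0.05 (adjusted p = 2.2e-17, 3.2e-09 and 7.8e-08). SLC2A1 in MM134 read 266, 235 and 246 CPM in siER_E2, 679, 659 and 703 in siFOXA1_E2 and 577, 588 and 594 in siMDC1_E2. SLC2A1 in MM330 read 115, 129.7 and 119 CPM in siER_E2, 202, 219.5 and 219 in siFOXA1_E2 and 279, 277 and 270.5 in siMDC1_E2. SLC2A1 in HCC1428 read 175, 172 and 179 CPM in siER_E2, 255, 243 and 227 in siFOXA1_E2 and 315, 300.4 and 305 in siMDC1_E2. In each line the siER_E2 libraries lay below all siNT_E2 libraries. SLC2A1 fell with the ESR1 siRNA in all 3 lines, with log2 fold changes of -1.96 ± 0.06, -0.99 ± 0.04 and -0.82 ± 0.05 (adjusted p = 2.9e-17, 7.7e-12 and 4.3e-11). Against vehicle, siER_E2 of MM134 stood at a log2 difference of 0.05 ± 0.06 (adjusted p = 0.6), which did not pass the test.

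SLC2A1 fell with the FOXA1 siRNA in all 3 lines, with log2 fold changes of -0.52 ± 0.06, -0.18 ± 0.04 and -0.36 ± 0.05 (adjusted p = 5e-08, 0.0014 and 3.2e-06). SLC2A1 rose with the MDC1 siRNA in MM330, fell in MM134 and did not pass the test in HCC1428, with log2 fold changes of -0.76 ± 0.06, 0.19 ± 0.04 and 0.01 ± 0.05 (adjusted p = 2e-10, 0.0018 and 0.92). The E2 response differed between MM134 and HCC1428 by 1.56 ± 0.08 (adjusted p = 8.1e-19) on the log2 scale and the MDC1 siRNA effect by -0.76 ± 0.08 (adjusted p = 1.7e-09). SLC2A1 with the MDC1 siRNA in MM330 lost its call with the lower-pseudogene libraries alone (0.17, adjusted p = 0.056).

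**Figure D4:**
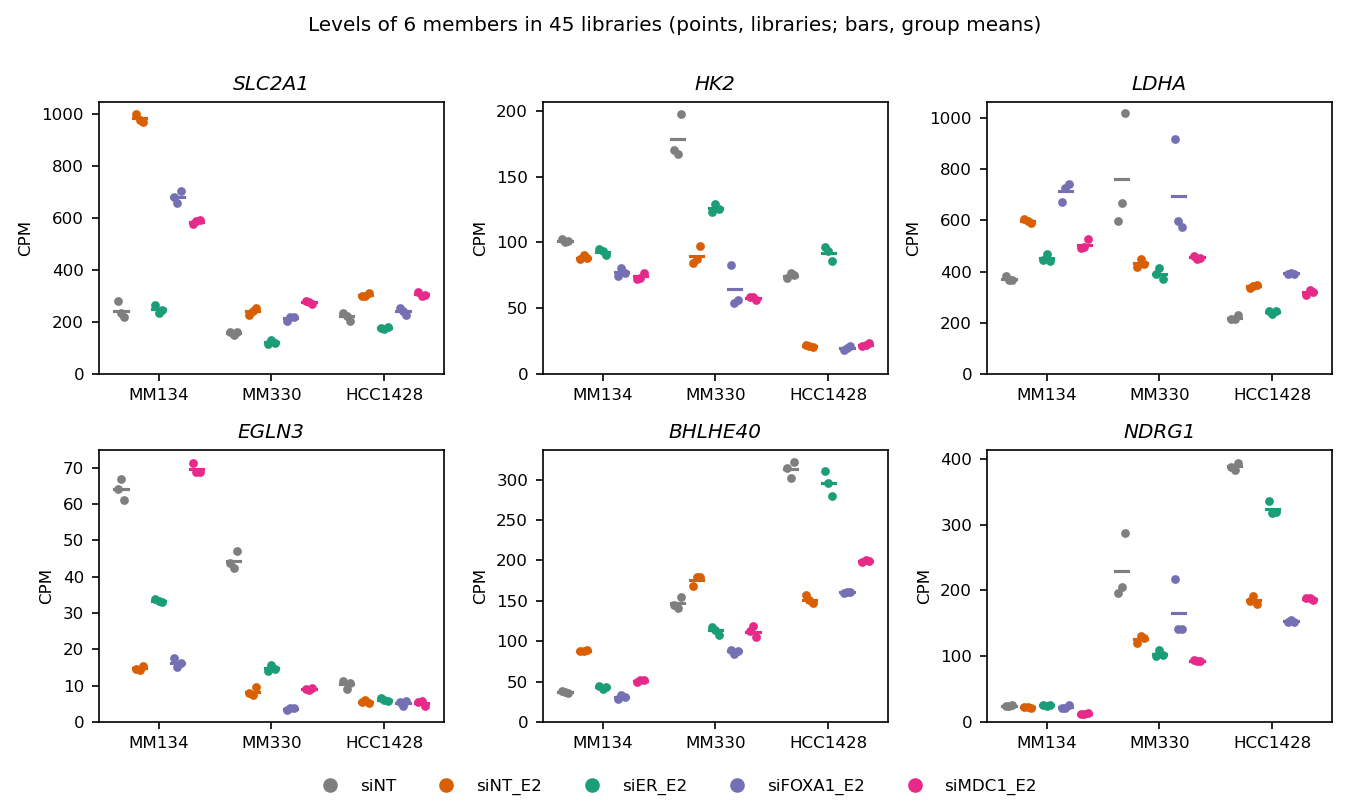
CPM of 6 members in all 45 libraries (points, with bars for the group means), by line on the horizontal axis and group by colour, each panel with its own linear axis from 0. SLC2A1 is highest in siNT_E2 of MM134, HK2 of HCC1428 is high in siNT and siER_E2 and low in the other 3 groups, and EGLN3 of MM134 is high in siNT and siMDC1_E2.

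The hexokinases HK1 and HK2 phosphorylate glucose after its entry. HK2 is the isozyme usually tied to rapid glycolysis. In MM134, HK2 read 102, 100.4 and 101 CPM in siNT and 87.0, 90.4 and 87.7 CPM in siNT_E2. In MM330, HK2 read 170.0, 167 and 198 CPM in siNT and 83.9, 87.7 and 97.2 CPM in siNT_E2. In HCC1428, HK2 read 72.5, 76.4 and 75.3 CPM in siNT and 22.1, 21.1 and 20.5 CPM in siNT_E2. HK2 was lower with E2 in every line without overlap, mildly in MM134 and most in HCC1428. HK2 fell with E2 in all 3 lines, with log2 fold changes of -0.21 ± 0.03, -0.97 ± 0.12 and -1.80 ± 0.06 (adjusted p = 1.4e-05, 1.2e-05 and 4.3e-15). HK2 in MM134 read 94.7, 93.2 and 90.5 CPM in siER_E2, 74.3, 80.7 and 76.4 in siFOXA1_E2 and 72.3, 73.0 and 76.8 in siMDC1_E2. HK2 in MM330 read 123, 129 and 125 CPM in siER_E2, 82.8, 53.8 and 56.0 in siFOXA1_E2 and 58.6, 58.3 and 56.1 in siMDC1_E2. HK2 in HCC1428 read 96.2, 93.2 and 86.0 CPM in siER_E2, 17.9, 20 and 21.3 in siFOXA1_E2 and 21.3, 21.6 and 23.1 in siMDC1_E2. In HCC1428 the siER_E2 libraries were above the vehicle libraries too, and the other knockdowns stayed near siNT_E2. HK2 rose with the ESR1 siRNA in all 3 lines, with log2 fold changes of 0.09 ± 0.03, 0.49 ± 0.12 and 2.08 ± 0.06 (adjusted p = 0.019, 0.0051 and 1.6e-15). The ESR1 siRNA effect differed by -2.04 ± 0.12 (adjusted p = 8.3e-17) in MM134 and -1.62 ± 0.12 (adjusted p = 4.3e-14) in MM330 from HCC1428, as differences of log2 fold changes. HK2 with the ESR1 siRNA in MM134 lost its call without siNT_E2 1 or 3 or siER_E2 1 (0.08, adjusted p = 0.091) and with DESeq2 or no filter on low counts. HK2 with the ESR1 siRNA in MM330 lost its call with the lower-pseudogene libraries alone (0.45, adjusted p = 0.057).

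HK2 fell with the FOXA1 siRNA in MM134 and MM330 and did not pass the test in HCC1428, with log2 fold changes of -0.19 ± 0.03, -0.48 ± 0.13 and -0.14 ± 0.06 (adjusted p = 4.8e-05, 0.0043 and 0.067). Without both MM330 libraries its FOXA1 siRNA value in MM330 was -0.74 (adjusted p = 1.3e-08). HK2 fell with the MDC1 siRNA in MM134 and MM330 and did not pass the test in HCC1428, with log2 fold changes of -0.27 ± 0.03, -0.64 ± 0.13 and 0.04 ± 0.06 (adjusted p = 6e-07, 0.0014 and 0.65).

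HK1, the isozyme present in most cells, moved little. HK1 in MM134 read 352, 342 and 346 CPM in siNT, 374, 377 and 372 in siNT_E2, 349, 327 and 335 in siER_E2, 387, 401 and 398 in siFOXA1_E2 and 341, 353 and 339 in siMDC1_E2. HK1 in MM330 read 227, 216 and 225 CPM in siNT, 242, 250.3 and 247 in siNT_E2, 202, 204 and 193 in siER_E2, 232, 247 and 245 in siFOXA1_E2 and 219, 211 and 208 in siMDC1_E2. HK1 in HCC1428 read 566, 566 and 587 CPM in siNT, 497, 506 and 486 in siNT_E2, 568, 546 and 545 in siER_E2, 484, 514 and 506 in siFOXA1_E2 and 498, 499 and 518 in siMDC1_E2. Its E2 changes were small on the log2 scale in every line and had opposite signs in the lobular lines and HCC1428. HK1 rose with E2 in MM134 and MM330 and fell in HCC1428, with log2 fold changes of 0.10 ± 0.03, 0.16 ± 0.03 and -0.19 ± 0.03 (adjusted p = 0.0058, 0.00042 and 4.7e-05). HK1 rose with the ESR1 siRNA in HCC1428 and fell in MM134 and MM330, with log2 fold changes of -0.13 ± 0.03, -0.31 ± 0.03 and 0.12 ± 0.03 (adjusted p = 0.00059, 4.2e-07 and 0.0035). Of the other 6 comparisons, HK1 was called in MM134 with the FOXA1 siRNA (0.09 ± 0.03, adjusted p = 0.014) and in MM134 and MM330 with the MDC1 siRNA (-0.13 ± 0.03, adjusted p = 0.00055 and -0.22 ± 0.03, adjusted p = 4.4e-05), as log2 fold changes. Per kilobase, HK2 made up 23.3% of both hexokinases in siNT and 19.7% in siNT_E2 of MM134, 45.3% and 27.4% in MM330, and 11.9% and 4.25% in HCC1428. In siER_E2 the share was 22.3%, 39.6% and 14.7% in the same order of lines. The HK2 share was therefore lower with E2 in each line, and in HCC1428 it was highest in siER_E2. HK1 with the FOXA1 siRNA in MM134 lost its call without siNT_E2 3 (0.08, adjusted p = 0.055) and with no filter on low counts.

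Phosphofructokinase, made of PFKL, PFKM and PFKP subunits, catalyses the committed step. PFKP was the subunit that moved most. PFKP in MM134 read 4.60, 4.67 and 5.19 CPM in siNT, 5.36, 7.16 and 5.55 in siNT_E2, 6.06, 7.09 and 6.33 in siER_E2, 5.08, 6.56 and 4.99 in siFOXA1_E2 and 6.65, 6.83 and 7.17 in siMDC1_E2. PFKP in MM330 read 53.7, 52.5 and 53.1 CPM in siNT, 78.5, 81.7 and 76.4 in siNT_E2, 48.5, 45 and 44.5 in siER_E2, 33.9, 31.7 and 31.5 in siFOXA1_E2 and 60.6, 57.0 and 52.2 in siMDC1_E2. PFKP in HCC1428 read 78.4, 74.1 and 76.8 CPM in siNT, 159, 168 and 160.0 in siNT_E2, 96.7, 95.5 and 96.3 in siER_E2, 75.5, 79.0 and 76.5 in siFOXA1_E2 and 128, 138 and 143 in siMDC1_E2. PFKP was under 8 CPM in all MM134 libraries, and in MM330 and HCC1428 the siNT_E2 libraries were above all others of the line. PFKP rose with E2 in all 3 lines, with log2 fold changes of 0.31 ± 0.13, 0.59 ± 0.06 and 1.10 ± 0.04 (adjusted p = 0.04999, 8.7e-07 and 5.5e-14). PFKP fell with the ESR1 siRNA in MM330 and HCC1428 and did not pass the test in MM134, with log2 fold changes of 0.13 ± 0.13, -0.78 ± 0.06 and -0.79 ± 0.04 (adjusted p = 0.4, 2.2e-08 and 9.7e-12). PFKP fell with the FOXA1 siRNA in MM330 and HCC1428 and did not pass the test in MM134, with log2 fold changes of -0.11 ± 0.13, -1.29 ± 0.06 and -1.11 ± 0.04 (adjusted p = 0.48, 5.4e-11 and 1e-13). PFKP fell with the MDC1 siRNA in MM330 and HCC1428 and did not pass the test in MM134, with log2 fold changes of 0.18 ± 0.13, -0.48 ± 0.06 and -0.26 ± 0.04 (adjusted p = 0.26, 1.4e-05 and 7.9e-05). Per kilobase, PFKP made up 17.2% of the 3 subunits in siNT and 24.6% in siNT_E2 of MM330, 21.6% and 32.4% in HCC1428, and 3.15% and 3.38% in MM134. PFKL had group means of 171 to 500.5 CPM and PFKM of 65.5 to 137 CPM. PFKL was called in 9 of 12 comparisons and PFKM in 9 of 12, the farthest from 0 being 0.33 ± 0.03 for PFKL (E2, HCC1428) and -0.46 ± 0.04 for PFKM (FOXA1 siRNA, MM134) on the log2 scale. Without both libraries, PFKL of MM330 was also called with the FOXA1 (-0.18) and MDC1 siRNAs (0.10). PFKP with E2 in MM134 lost its call without siNT 1 or 2 or siNT_E2 2 (0.16, adjusted p = 0.34) and with limma-voom or no filter on low counts.

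**Figure D5:**
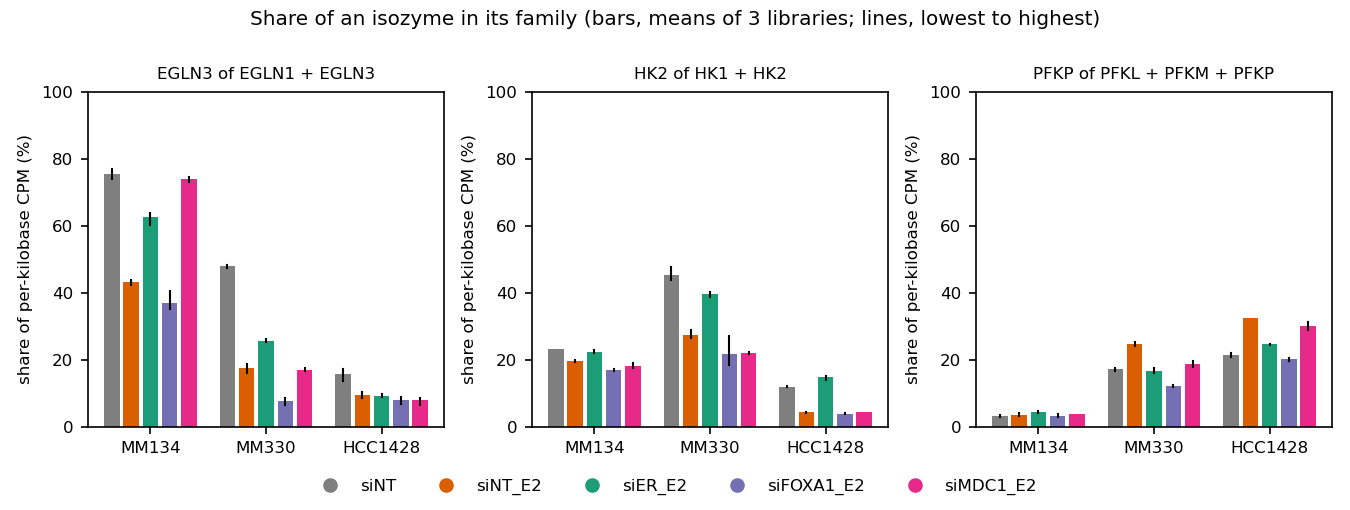
Share of EGLN3, HK2 and PFKP in the summed CPM per kilobase of their families (bars, means of 3 libraries, in percent, and lines, lowest to highest library), by line and group. The EGLN3 share goes from 75.5% to 43.2% with E2 in MM134 and is 74.0% in siMDC1_E2.

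PFKFB3 and PFKFB4 make and remove the sugar bisphosphate that activates phosphofructokinase. PFKFB3 in MM134 read 42.6, 38.0 and 40.6 CPM in siNT, 68.2, 73.5 and 73.1 in siNT_E2, 39.3, 35.8 and 37.2 in siER_E2, 54.0, 59.9 and 58.9 in siFOXA1_E2 and 75.7, 80.0 and 79.8 in siMDC1_E2. PFKFB3 in MM330 read 47.2, 51.6 and 76.0 CPM in siNT, 63.6, 72.2 and 69.2 in siNT_E2, 34.9, 36.5 and 35.9 in siER_E2, 76.7, 48.3 and 48.9 in siFOXA1_E2 and 56.3, 55.4 and 57.2 in siMDC1_E2. PFKFB3 in HCC1428 read 61.9, 60.6 and 55.7 CPM in siNT, 63.6, 69.4 and 66.7 in siNT_E2, 52.5, 51.5 and 52.5 in siER_E2, 44.3, 42.9 and 42.0 in siFOXA1_E2 and 59.6, 52.2 and 57.2 in siMDC1_E2. In MM134 the siNT_E2 libraries were above the vehicle libraries, and in every line all siER_E2 libraries were below those of siNT_E2. PFKFB3 rose with E2 in MM134 and HCC1428 and did not pass the test in MM330, with log2 fold changes of 0.82 ± 0.05, 0.25 ± 0.17 and 0.18 ± 0.05 (adjusted p = 2.8e-12, 0.33 and 0.0066). PFKFB3 fell with the ESR1 siRNA in all 3 lines, with log2 fold changes of -0.91 ± 0.05, -0.94 ± 0.17 and -0.38 ± 0.05 (adjusted p = 4.3e-13, 0.00041 and 4.8e-06). Without both MM330 libraries its E2 change in MM330 was 0.47 and its FOXA1 siRNA change -0.52, both called, while neither passed the test with them (FOXA1 siRNA -0.24 ± 0.17, adjusted p = 0.26). In MM134 and HCC1428 the FOXA1 siRNA changes of PFKFB3 were -0.30 ± 0.05 (adjusted p = 6.2e-06) and -0.66 ± 0.05 (adjusted p = 4.2e-09). With the MDC1 siRNA they were 0.12 ± 0.04 (adjusted p = 0.03) and -0.25 ± 0.05 (adjusted p = 0.0012), called in opposite directions. Without both libraries, PFKFB3 of MM330 was also called with the MDC1 siRNA (-0.28). PFKFB3 with E2 in HCC1428 lost its call without siNT_E2 3 or 4 (0.11, adjusted p = 0.12). PFKFB3 with the MDC1 siRNA in MM134 lost its call without siNT_E2 1 or siMDC1_E2 2 or 3 (0.09, adjusted p = 0.19) and with DESeq2 or RLE scaling.

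PFKFB4 in MM134 read 18.9, 22.2 and 21.7 CPM in siNT, 24.0, 26.6 and 26.2 in siNT_E2, 16.6, 18.5 and 18.6 in siER_E2, 19.8, 20.2 and 19.5 in siFOXA1_E2 and 16.4, 18.5 and 18.3 in siMDC1_E2. PFKFB4 in MM330 read 9.04, 10.5 and 11.9 CPM in siNT, 6.69, 9.04 and 8.91 in siNT_E2, 7.92, 7.71 and 9.07 in siER_E2, 7.89, 6.80 and 8.17 in siFOXA1_E2 and 7.93, 7.72 and 7.59 in siMDC1_E2. PFKFB4 in HCC1428 read 15.2, 12.8 and 15.9 CPM in siNT, 14.7, 17.6 and 18 in siNT_E2, 14.3, 13.7 and 13.4 in siER_E2, 15.6, 14.1 and 12.4 in siFOXA1_E2 and 13.6, 13.3 and 13.9 in siMDC1_E2. PFKFB4 was called in none of the 4 comparisons of MM330. PFKFB4 rose with E2 in MM134 and did not pass the test in MM330 and HCC1428, with log2 fold changes of 0.27 ± 0.07, -0.34 ± 0.13 and 0.21 ± 0.10 (adjusted p = 0.0018, 0.072 and 0.077). PFKFB4 fell with the ESR1 siRNA in MM134 and HCC1428 and did not pass the test in MM330, with log2 fold changes of -0.49 ± 0.07, 0.01 ± 0.13 and -0.31 ± 0.10 (adjusted p = 2.7e-06, 0.98 and 0.011). In MM134 it also fell with the FOXA1 siRNA (-0.36 ± 0.07, adjusted p = 0.00012) and the MDC1 siRNA (-0.54 ± 0.07, adjusted p = 9.7e-07), and in HCC1428 likewise (-0.28 ± 0.10, adjusted p = 0.018 and -0.31 ± 0.10, adjusted p = 0.021). PFKFB4 with the ESR1 siRNA in HCC1428 lost its call without siNT_E2 3 or 4 (-0.22, adjusted p = 0.11). PFKFB4 with the FOXA1 siRNA in HCC1428 lost its call without siNT_E2 3 or 4 or siFOXA1_E2 3 (-0.20, adjusted p = 0.13). PFKFB4 with the MDC1 siRNA in HCC1428 lost its call without siNT_E2 3 or 4 or siMDC1_E2 1 or 2 (-0.25, adjusted p = 0.1).

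The aldolases split the sugar bisphosphate into trioses. ALDOC, the minor one in these lines, was at 2.06 to 17.4 CPM in every library. ALDOC in MM134 read 10.2, 10.3 and 10.3 CPM in siNT, 16.8, 17.4 and 14.8 in siNT_E2, 8.98, 10.1 and 10.9 in siER_E2, 14.5, 16.4 and 16.1 in siFOXA1_E2 and 7.36, 9.25 and 9.38 in siMDC1_E2. ALDOC in MM330 read 4.20, 4.67 and 4.77 CPM in siNT, 4.48, 5.49 and 4.72 in siNT_E2, 9.95, 9.81 and 9.96 in siER_E2, 7.52, 4.61 and 5.51 in siFOXA1_E2 and 7.82, 7.54 and 6.71 in siMDC1_E2. ALDOC in HCC1428 read 2.84, 2.06 and 2.82 CPM in siNT, 5.75, 7.01 and 6.08 in siNT_E2, 2.97, 2.59 and 2.78 in siER_E2, 7.56, 6.07 and 7.54 in siFOXA1_E2 and 3.73, 3.84 and 3.75 in siMDC1_E2. The siER_E2 libraries were below siNT_E2 in MM134 and HCC1428 and above it in MM330, without overlap in any line. ALDOC rose with E2 in MM134 and HCC1428 and did not pass the test in MM330, with log2 fold changes of 0.66 ± 0.09, 0.12 ± 0.16 and 1.30 ± 0.14 (adjusted p = 2.3e-06, 0.67 and 2.9e-07). ALDOC rose with the ESR1 siRNA in MM330 and fell in MM134 and HCC1428, with log2 fold changes of -0.69 ± 0.09, 1.01 ± 0.16 and -1.20 ± 0.14 (adjusted p = 1.2e-06, 8.8e-05 and 8.1e-07). The ESR1 siRNA effect on ALDOC differed between MM330 and HCC1428 by 2.18 ± 0.19 (adjusted p = 3.9e-12) on the log2 scale. ALDOC rose with the MDC1 siRNA in MM330 and fell in MM134 and HCC1428, with log2 fold changes of -0.93 ± 0.09, 0.58 ± 0.16 and -0.74 ± 0.14 (adjusted p = 2.3e-08, 0.015 and 0.00046). With the FOXA1 siRNA ALDOC passed the test in no line. ALDOC with the MDC1 siRNA in MM330 lost its call without siNT_E2 1 or 3 or siMDC1_E2 1 (0.55, adjusted p = 0.061) and with the lower-pseudogene libraries alone.

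ALDOA in MM134 read 33.2, 29.7 and 33.9 CPM in siNT, 51.2, 49.5 and 46.5 in siNT_E2, 39.6, 34.2 and 37.1 in siER_E2, 57.8, 67.7 and 60.8 in siFOXA1_E2 and 48.1, 43.9 and 39.5 in siMDC1_E2. ALDOA in MM330 read 40.9, 46.5 and 53.3 CPM in siNT, 40.6, 36.8 and 44.1 in siNT_E2, 38.1, 30.9 and 26.6 in siER_E2, 35.5, 50.9 and 56.4 in siFOXA1_E2 and 32.0, 34.4 and 29 in siMDC1_E2. ALDOA in HCC1428 read 146, 136 and 165 CPM in siNT, 173, 151 and 118 in siNT_E2, 163, 138 and 128 in siER_E2, 198, 203 and 234 in siFOXA1_E2 and 165, 183 and 191 in siMDC1_E2. The ALDOA libraries overlapped between siNT and siNT_E2 in MM330 and HCC1428. ALDOA rose with E2 in MM134 (0.60 ± 0.07, adjusted p = 2.8e-07), fell there with the ESR1 siRNA (-0.38 ± 0.07, adjusted p = 7.2e-05) and rose with the FOXA1 siRNA in MM134 (0.35 ± 0.07, adjusted p = 0.00015) and HCC1428 (0.49 ± 0.11, adjusted p = 0.00096). Its values are uncertain: 42.3% of its exon bases overlap another gene, AC093512.2, on the same strand, and how shared reads were counted is not given in the sources used here. With the libraries of lower pseudogene share alone, its E2 change in HCC1428 was -0.31 (adjusted p = 0.0026) in place of 0.00 ± 0.11 (adjusted p = 1). Without both libraries, ALDOA of MM330 was also called with the ESR1 (-0.35), FOXA1 (0.37) and MDC1 siRNAs (-0.35).

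GAPDH, PGK1, PGAM1, the enolases and PKM carry the trioses to pyruvate. GAPDH in MM134 read 1634, 1649 and 1559 CPM in siNT, 2355, 2329 and 2294 in siNT_E2, 1792, 1777 and 1795 in siER_E2, 2792, 2939 and 2969 in siFOXA1_E2 and 2227, 2220 and 2429 in siMDC1_E2. GAPDH in MM330 read 2192, 2194 and 2695 CPM in siNT, 2029, 2196 and 2051 in siNT_E2, 1918, 2159 and 2012 in siER_E2, 2209, 1981 and 1940 in siFOXA1_E2 and 2156, 2157 and 2195 in siMDC1_E2. GAPDH in HCC1428 read 1773, 1731 and 1687 CPM in siNT, 3033, 3079 and 3093 in siNT_E2, 2038, 1994 and 2071 in siER_E2, 2358, 2326 and 2213 in siFOXA1_E2 and 2402, 2544 and 2469 in siMDC1_E2. In MM134 and HCC1428 every siNT_E2 library was above every siNT library, and in MM330 they overlapped. GAPDH rose with E2 in MM134 and HCC1428 and did not pass the test in MM330, with log2 fold changes of 0.52 ± 0.03, -0.16 ± 0.07 and 0.84 ± 0.03 (adjusted p = 2.6e-12, 0.14 and 8.5e-14). GAPDH fell with the ESR1 siRNA in MM134 and HCC1428 and did not pass the test in MM330, with log2 fold changes of -0.36 ± 0.03, -0.05 ± 0.07 and -0.63 ± 0.03 (adjusted p = 1e-09, 0.7 and 9.9e-12). GAPDH rose with the FOXA1 siRNA in MM134, fell in HCC1428 and did not pass the test in MM330, with log2 fold changes of 0.33 ± 0.03, -0.03 ± 0.07 and -0.45 ± 0.03 (adjusted p = 3.8e-09, 0.74 and 1e-09). The FOXA1 siRNA effect on GAPDH differed between MM134 and HCC1428 by 0.73 ± 0.07 (adjusted p = 1.4e-10) on the log2 scale. With the MDC1 siRNA it was called in HCC1428 alone (-0.32 ± 0.03, adjusted p = 6.4e-07). Without both libraries, GAPDH of MM330 was called with the FOXA1 siRNA (-0.13). GAPDH is often used as a reference gene, and here it had 62 pseudogene copies, which took 0.139% to 1.02% of the summed counts of gene and copies.

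ENO2, an enolase first known from neurons, moved apart from ENO1. ENO2 in MM134 read 97.4, 89.2 and 86.5 CPM in siNT, 86.1, 84.2 and 86.1 in siNT_E2, 87.7, 84.7 and 85.6 in siER_E2, 73.6, 78.9 and 77.3 in siFOXA1_E2 and 83.5, 88.8 and 89.8 in siMDC1_E2. ENO2 in MM330 read 54.6, 54.5 and 61.0 CPM in siNT, 69.7, 81.3 and 79.7 in siNT_E2, 47.3, 50.8 and 43.1 in siER_E2, 60, 50.5 and 52.4 in siFOXA1_E2 and 58.0, 61.9 and 60.3 in siMDC1_E2. ENO2 in HCC1428 read 23.3, 23.4 and 22.5 CPM in siNT, 44.9, 47.4 and 48.4 in siNT_E2, 24.7, 24.8 and 26.2 in siER_E2, 23.6, 23.2 and 23.0 in siFOXA1_E2 and 32.0, 32.5 and 30.2 in siMDC1_E2. In HCC1428 the siNT_E2 libraries were above all others of the line, and in MM134 they were below those of siNT. ENO2 rose with E2 in MM330 and HCC1428 and fell in MM134, with log2 fold changes of -0.10 ± 0.04, 0.46 ± 0.08 and 1.04 ± 0.05 (adjusted p = 0.032, 0.00021 and 1.7e-12). ENO2 fell with the ESR1 siRNA in MM330 and HCC1428 and did not pass the test in MM134, with log2 fold changes of 0.03 ± 0.04, -0.71 ± 0.08 and -0.93 ± 0.05 (adjusted p = 0.49, 1.7e-06 and 1.3e-11). ENO2 fell with the FOXA1 siRNA in all 3 lines, with log2 fold changes of -0.15 ± 0.04, -0.50 ± 0.08 and -1.04 ± 0.05 (adjusted p = 0.0025, 3.7e-05 and 2.8e-12). ENO2 fell with the MDC1 siRNA in MM330 and HCC1428 and did not pass the test in MM134, with log2 fold changes of 0.02 ± 0.04, -0.36 ± 0.08 and -0.58 ± 0.05 (adjusted p = 0.73, 0.0023 and 6.2e-08). ENO1 rose with E2 in MM134 and HCC1428 and fell in MM330, with log2 fold changes of 0.80 ± 0.03, -0.53 ± 0.08 and 0.09 ± 0.03 (adjusted p = 1.5e-16, 0.00014 and 0.026). Without both MM330 libraries, ENO1 in MM330 changed by -0.40 (adjusted p = 4.5e-06) with E2 and was called at 0.15 with the MDC1 siRNA, where it had no call with them. ENO1 with E2 in HCC1428 lost its call without siNT 2 or 3 or siNT_E2 3 or 4 (0.03, adjusted p = 0.44) and with the lower-pseudogene libraries alone or the compared libraries alone. ENO2 with E2 in MM134 lost its call without siNT 1 or siNT_E2 1, 2 or 3 (-0.05, adjusted p = 0.26) and with DESeq2, no filter on low counts or RLE scaling.

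The remaining enzymes of the route were GPI, TPI1, PGK1, PGAM1 and PKM, with group means of 124 to 472, 277 to 444, 197 to 766, 71.5 to 126 and 483 to 1296 CPM. With E2 each of the 5 rose in MM134 and HCC1428, with log2 fold changes from 0.39 ± 0.04 in PGK1 to 0.66 ± 0.03 in PKM in MM134 and from 0.48 ± 0.04 in PGK1 to 0.66 ± 0.04 in TPI1 in HCC1428. In MM330, GPI and PGK1 fell (-0.22 ± 0.07, adjusted p = 0.024 and -0.50 ± 0.11, adjusted p = 0.0019), and the others did not pass the test. Without both libraries GPI was at -0.11 (adjusted p = 0.034) and PKM was called higher, at 0.11. PKM, which makes pyruvate, was called lower with all 3 siRNAs in all lines. Its log2 fold changes with the ESR1 siRNA were -0.66 ± 0.03 (adjusted p = 3.7e-15), -0.36 ± 0.06 (adjusted p = 0.00017) and -0.35 ± 0.03 (adjusted p = 3e-08). Its MM330 value with the FOXA1 siRNA went from -0.17 ± 0.06 (adjusted p = 0.025) to -0.27 (adjusted p = 6.3e-06) without both libraries. Without both libraries, TPI1 of MM330 was also called with the ESR1 (-0.15) and FOXA1 siRNAs (-0.28). GPI was called lower in MM134 and HCC1428 with the ESR1 siRNA (-0.46 ± 0.04, adjusted p = 1.5e-09 and -0.25 ± 0.03, adjusted p = 3.8e-06) and higher in all lines with the FOXA1 siRNA, at 0.15 ± 0.04, 0.40 ± 0.07 and 0.23 ± 0.03. Pseudogene copies took at most 4.29% of the summed counts for TPI1 and 5.35% for PGAM1. GPI with E2 in MM330 lost its call without siNT 3 or siNT_E2 1 or 3 (-0.11, adjusted p = 0.15) and with the lower-pseudogene libraries alone. In MM330, PKM lost its FOXA1 and MDC1 siRNA calls under settings named above.

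LDHA encodes the lactate dehydrogenase subunit that favours lactate. In MM134, LDHA read 381, 368 and 365 CPM in siNT and 606, 597 and 590.2 CPM in siNT_E2. In MM330, LDHA read 599, 667 and 1022 CPM in siNT and 419, 447 and 431 CPM in siNT_E2. In HCC1428, LDHA read 216, 216 and 229 CPM in siNT and 337, 342 and 348 CPM in siNT_E2. The siNT_E2 libraries were above vehicle in MM134 and HCC1428 and below it in MM330, with no overlap in any line. LDHA rose with E2 in MM134 and HCC1428 and fell in MM330, with log2 fold changes of 0.67 ± 0.03, -0.80 ± 0.18 and 0.65 ± 0.03 (adjusted p = 7.9e-14, 0.0024 and 3.9e-12). In MM330 the highest siNT value came from the replicate that stood apart, and without both MM330 libraries the E2 change was -0.54 (adjusted p = 7e-07). The E2 response of MM330 differed from that of HCC1428 by -1.46 ± 0.16 (adjusted p = 8e-10). LDHA in MM134 read 446, 468 and 441 CPM in siER_E2, 673, 727 and 741 in siFOXA1_E2 and 494, 497 and 526 in siMDC1_E2. LDHA in MM330 read 389, 414 and 372 CPM in siER_E2, 918, 597 and 574 in siFOXA1_E2 and 462, 448 and 455 in siMDC1_E2. LDHA in HCC1428 read 246, 235 and 246 CPM in siER_E2, 389.9, 395 and 392 in siFOXA1_E2 and 308, 326 and 320.5 in siMDC1_E2. The siFOXA1_E2 libraries were above those of siNT_E2 in each line. LDHA fell with the ESR1 siRNA in MM134 and HCC1428 and did not pass the test in MM330, with log2 fold changes of -0.38 ± 0.03, -0.14 ± 0.18 and -0.53 ± 0.03 (adjusted p = 8.8e-10, 0.6 and 1.2e-10). LDHA rose with the FOXA1 siRNA in all 3 lines, with log2 fold changes of 0.26 ± 0.03, 0.69 ± 0.18 and 0.16 ± 0.03 (adjusted p = 2.4e-07, 0.0034 and 4e-04). Without both libraries the MM330 value with the FOXA1 siRNA was 0.40 (adjusted p = 6.3e-06). LDHA fell with the MDC1 siRNA in MM134 and HCC1428 and did not pass the test in MM330, with log2 fold changes of -0.25 ± 0.03, 0.07 ± 0.17 and -0.12 ± 0.03 (adjusted p = 6.1e-07, 0.87 and 0.012). Without both libraries, LDHA of MM330 was also called with the ESR1 siRNA (-0.14). LDHA with the MDC1 siRNA in HCC1428 lost its call without siMDC1_E2 1 (-0.09, adjusted p = 0.075) and with the compared libraries alone.

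SLC16A3 exports lactate, and PDK1 and PDK3 hold pyruvate back from the mitochondria by inhibiting pyruvate dehydrogenase. SLC16A3 rose with E2 in HCC1428, fell in MM330 and did not pass the test in MM134, with log2 fold changes of 0.06 ± 0.07, -0.20 ± 0.05 and 0.88 ± 0.07 (adjusted p = 0.52, 0.0068 and 3.9e-09). SLC16A3 rose with the FOXA1 siRNA in all 3 lines, with log2 fold changes of 0.20 ± 0.07, 0.78 ± 0.05 and 0.32 ± 0.07 (adjusted p = 0.02, 2e-09 and 0.00063). SLC16A3 had group means of 14.5 to 119.7 CPM and stood highest in MM330 siFOXA1_E2, at 108, 129.6 and 122 CPM, above the 68.1, 71.2 and 68.5 CPM of siNT_E2 in that line. PDK1 in MM134 read 6.29, 6.50 and 6.29 CPM in siNT, 5.57, 5.38 and 6.0 in siNT_E2, 7.48, 6.4 and 6.36 in siER_E2, 5.70, 5.66 and 5.91 in siFOXA1_E2 and 5.85, 5.32 and 5.38 in siMDC1_E2. PDK1 in MM330 read 7.94, 7.13 and 9.83 CPM in siNT, 4.21, 4.82 and 5.61 in siNT_E2, 4.57, 4.59 and 4.0 in siER_E2, 9.29, 4.05 and 4.72 in siFOXA1_E2 and 3.34, 4.53 and 4.71 in siMDC1_E2. PDK1 in HCC1428 read 5.72, 4.86 and 5.35 CPM in siNT, 6.92, 6.04 and 6.26 in siNT_E2, 4.32, 5.69 and 5.69 in siER_E2, 5.16, 5.53 and 5.48 in siFOXA1_E2 and 5.44, 6.03 and 4.89 in siMDC1_E2. PDK1 was under 10 CPM in all 45 libraries. PDK1 fell with E2 in MM330 and did not pass the test in MM134 and HCC1428, with log2 fold changes of -0.18 ± 0.10, -0.75 ± 0.25 and 0.29 ± 0.12 (adjusted p = 0.13, 0.038 and 0.058). The siFOXA1_E2 replicate 1 of MM330 was the highest of its group, and without both libraries the FOXA1 siRNA value went from 0.31 ± 0.26 (adjusted p = 0.34) to -0.18 (adjusted p = 0.4), neither of them called. PDK1 rose with the ESR1 siRNA in MM134, fell in HCC1428 and did not pass the test in MM330, with log2 fold changes of 0.28 ± 0.10, -0.16 ± 0.26 and -0.32 ± 0.12 (adjusted p = 0.021, 0.72 and 0.035). PDK1 with the ESR1 siRNA in HCC1428 lost its call without siNT_E2 2, 3 or 4 or siER_E2 1 (-0.20, adjusted p = 0.19) and with DESeq2, no filter on low counts or the compared libraries alone. PDK1 with the ESR1 siRNA in MM134 lost its call without siNT_E2 1 or 2 or siER_E2 1 (0.20, adjusted p = 0.13) and with DESeq2 or no filter on low counts. PDK1 with E2 in MM330 lost its call without siNT 1 or 3 or siNT_E2 1 or 2 (-0.62, adjusted p = 0.15) and with the lower-pseudogene libraries alone. SLC16A3 with the FOXA1 siRNA in MM134 lost its call without siNT_E2 2 or 3 or siFOXA1_E2 1 or 3 (0.18, adjusted p = 0.07).

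PDK3 in MM134 read 53.9, 58.6 and 59.0 CPM in siNT, 61.6, 59.6 and 61.2 in siNT_E2, 55.9, 58.9 and 55.8 in siER_E2, 41.0, 41.9 and 42.2 in siFOXA1_E2 and 49.1, 51.2 and 53.3 in siMDC1_E2. PDK3 in MM330 read 27.2, 27.9 and 25.6 CPM in siNT, 24.1, 28.2 and 27.4 in siNT_E2, 24.9, 23.5 and 25.2 in siER_E2, 25.6, 22.3 and 22.5 in siFOXA1_E2 and 23.9, 22.9 and 23.7 in siMDC1_E2. PDK3 in HCC1428 read 37.9, 41.7 and 40.8 CPM in siNT, 47.8, 46.7 and 51.9 in siNT_E2, 46.5, 43.6 and 42.3 in siER_E2, 33.8, 32.6 and 32.1 in siFOXA1_E2 and 44.1, 42.7 and 40.3 in siMDC1_E2. The siFOXA1_E2 libraries of MM134 and HCC1428 were below every other library of those lines. PDK3 rose with E2 in HCC1428 and did not pass the test in MM134 and MM330, with log2 fold changes of 0.08 ± 0.04, 0.00 ± 0.08 and 0.30 ± 0.05 (adjusted p = 0.09, 0.99 and 7.7e-05). PDK3 fell with the FOXA1 siRNA in MM134 and HCC1428 and did not pass the test in MM330, with log2 fold changes of -0.54 ± 0.04, -0.18 ± 0.08 and -0.61 ± 0.05 (adjusted p = 9.1e-11, 0.07 and 1.6e-08). Leaving out both libraries, the MM330 value was called, at -0.28. PDK3 fell with the MDC1 siRNA in MM134 and HCC1428 and did not pass the test in MM330, with log2 fold changes of -0.26 ± 0.04, -0.18 ± 0.08 and -0.21 ± 0.05 (adjusted p = 6.4e-06, 0.13 and 0.0043). Without both libraries, PDK3 of MM330 was also called with the MDC1 siRNA (-0.18).

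HIF1A and EPAS1 encode the oxygen-labile subunits of the hypoxia-inducible factors, which are set mainly through protein stability, which was not measured here. HIF1A in MM134 read 109, 102 and 104 CPM in siNT, 97.5, 95.9 and 93.1 in siNT_E2, 103, 108 and 95.2 in siER_E2, 65.1, 72.4 and 67.0 in siFOXA1_E2 and 118, 119.8 and 118 in siMDC1_E2. HIF1A in MM330 read 224, 222 and 224 CPM in siNT, 292, 292 and 311 in siNT_E2, 206, 207 and 194 in siER_E2, 219, 221 and 225 in siFOXA1_E2 and 255, 257 and 248 in siMDC1_E2. HIF1A in HCC1428 read 70.7, 69.6 and 83.5 CPM in siNT, 90.9, 87.3 and 89.0 in siNT_E2, 77.4, 72.5 and 74.7 in siER_E2, 76.0, 78.3 and 74.3 in siFOXA1_E2 and 89.3, 94.7 and 92.5 in siMDC1_E2. HIF1A was highest in MM330, where all siNT_E2 libraries were above all others of the line. HIF1A rose with E2 in MM330 and HCC1428 and fell in MM134, with log2 fold changes of -0.14 ± 0.04, 0.44 ± 0.03 and 0.27 ± 0.05 (adjusted p = 0.0044, 4.2e-08 and 0.00019). HIF1A rose with the ESR1 siRNA in MM134 and fell in MM330 and HCC1428, with log2 fold changes of 0.11 ± 0.04, -0.56 ± 0.03 and -0.28 ± 0.05 (adjusted p = 0.018, 1.3e-09 and 0.00014). HIF1A fell with the FOXA1 siRNA in all 3 lines, with log2 fold changes of -0.48 ± 0.04, -0.43 ± 0.03 and -0.26 ± 0.05 (adjusted p = 1.1e-09, 2e-08 and 0.00033). HIF1A rose with the MDC1 siRNA in MM134, fell in MM330 and did not pass the test in HCC1428, with log2 fold changes of 0.30 ± 0.04, -0.24 ± 0.03 and 0.04 ± 0.05 (adjusted p = 1.1e-06, 6.2e-05 and 0.61). HIF1A with E2 in HCC1428 lost its call with the lower-pseudogene libraries alone (0.06, adjusted p = 0.43). HIF1A with the ESR1 siRNA in MM134 lost its call without siNT_E2 3 or siER_E2 1 or 2 (0.08, adjusted p = 0.14).

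EPAS1 in MM134 read 127, 120.3 and 128 CPM in siNT, 128, 131 and 126 in siNT_E2, 104, 103 and 102 in siER_E2, 103, 107 and 106 in siFOXA1_E2 and 137, 136 and 136 in siMDC1_E2. EPAS1 in MM330 read 57.0, 60.4 and 55.6 CPM in siNT, 43.1, 45.9 and 51.6 in siNT_E2, 45.9, 51.4 and 45.7 in siER_E2, 63.2, 97.2 and 101 in siFOXA1_E2 and 38.5, 35.2 and 38.7 in siMDC1_E2. EPAS1 in HCC1428 read 136, 135 and 142 CPM in siNT, 203, 205 and 198 in siNT_E2, 149, 144 and 147 in siER_E2, 203, 196 and 202 in siFOXA1_E2 and 176, 174 and 173 in siMDC1_E2. EPAS1 of HCC1428 was higher in the E2 libraries than in vehicle, and in MM330 the siFOXA1_E2 libraries were above all others. EPAS1 rose with E2 in HCC1428 and did not pass the test in MM134 and MM330, with log2 fold changes of 0.03 ± 0.03, -0.28 ± 0.11 and 0.57 ± 0.03 (adjusted p = 0.37, 0.078 and 1.5e-11). EPAS1 rose with the FOXA1 siRNA in MM330, fell in MM134 and did not pass the test in HCC1428, with log2 fold changes of -0.28 ± 0.03, 0.89 ± 0.11 and -0.04 ± 0.03 (adjusted p = 5.9e-08, 4.6e-06 and 0.24). Without both libraries the MM330 values were -0.32 with E2, now called, and 1.05 (adjusted p = 6.1e-09) with the FOXA1 siRNA. EPAS1 fell with the ESR1 siRNA in MM134 and HCC1428 and did not pass the test in MM330, with log2 fold changes of -0.30 ± 0.03, 0.02 ± 0.11 and -0.49 ± 0.03 (adjusted p = 2.9e-08, 0.92 and 1.4e-10). EPAS1 fell with the MDC1 siRNA in HCC1428 and did not pass the test in MM134 and MM330, with log2 fold changes of 0.07 ± 0.03, -0.33 ± 0.12 and -0.22 ± 0.03 (adjusted p = 0.061, 0.056 and 2.5e-05). Without both libraries, EPAS1 of MM330 was also called with the MDC1 siRNA (-0.32).

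EGLN3 and EGLN1 encode prolyl hydroxylases that mark the hypoxia-inducible factors for degradation, and EGLN3 is itself a hypoxia target. In MM134, EGLN3 read 64.3, 66.8 and 61.0 CPM in siNT and 14.6, 14.3 and 15.3 CPM in siNT_E2. In MM330, EGLN3 read 43.8, 42.3 and 47.2 CPM in siNT and 7.98, 7.41 and 9.55 CPM in siNT_E2. In HCC1428, EGLN3 read 11.4, 8.98 and 10.7 CPM in siNT and 5.54, 5.91 and 5.09 CPM in siNT_E2. The siNT_E2 libraries were below the vehicle libraries in each line without overlap. EGLN3 fell with E2 in all 3 lines, with log2 fold changes of -2.13 ± 0.05, -2.40 ± 0.08 and -0.90 ± 0.13 (adjusted p = 9.8e-19, 1.6e-12 and 1e-05). The E2 response was more negative than in HCC1428, by a difference of -1.20 ± 0.13 (adjusted p = 5.3e-10) in MM134 and -1.50 ± 0.13 (adjusted p = 4.4e-12) in MM330. EGLN3 in MM134 read 33.8, 33.4 and 33.0 CPM in siER_E2, 17.5, 15.2 and 16.2 in siFOXA1_E2 and 71.4, 68.8 and 68.8 in siMDC1_E2. EGLN3 in MM330 read 14.1, 15.7 and 14.6 CPM in siER_E2, 3.31, 3.88 and 3.72 in siFOXA1_E2 and 9.02, 8.84 and 9.35 in siMDC1_E2. EGLN3 in HCC1428 read 6.54, 6.17 and 5.69 CPM in siER_E2, 5.61, 4.50 and 5.89 in siFOXA1_E2 and 5.51, 5.89 and 4.28 in siMDC1_E2. In MM134 the siMDC1_E2 libraries were above the vehicle libraries, those of siER_E2 lay between vehicle and E2, and those of siFOXA1_E2 were near siNT_E2. EGLN3 rose with the MDC1 siRNA in MM134 and did not pass the test in MM330 and HCC1428, with log2 fold changes of 2.23 ± 0.05, 0.12 ± 0.09 and -0.08 ± 0.14 (adjusted p = 8.4e-19, 0.4 and 0.72). EGLN3 rose with the ESR1 siRNA in MM134 and MM330 and did not pass the test in HCC1428, with log2 fold changes of 1.2 ± 0.06, 0.83 ± 0.08 and 0.13 ± 0.14 (adjusted p = 3.7e-14, 8.2e-07 and 0.47). EGLN3 rose with the FOXA1 siRNA in MM134, fell in MM330 and did not pass the test in HCC1428, with log2 fold changes of 0.16 ± 0.06, -1.19 ± 0.10 and -0.08 ± 0.14 (adjusted p = 0.03, 2.9e-08 and 0.65). EGLN3 with the FOXA1 siRNA in MM134 lost its call without siNT_E2 1 or 2 or siFOXA1_E2 1 (0.09, adjusted p = 0.25) and with DESeq2, limma-voom, the lower-pseudogene libraries alone, no filter on low counts or the compared libraries alone.

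The MDC1 siRNA effect on EGLN3 was larger in MM134 than in HCC1428 by 2.31 ± 0.14 (adjusted p = 9.6e-17) on the log2 scale. Against vehicle, siMDC1_E2 of MM134 stood at 0.10 ± 0.05 (adjusted p = 0.086), which did not pass the test, and siMDC1_E2 of MM330 at -2.28 ± 0.08 (adjusted p = 3.7e-12). ESR1 was also lower in siMDC1_E2 of both lobular lines, as given above, and its part in the result was not tested. EGLN1 in MM134 read 19.1, 21.4 and 21.2 CPM in siNT, 18.7, 19.2 and 19.3 in siNT_E2, 18.8, 19.0 and 21.4 in siER_E2, 25.3, 27.6 and 29.2 in siFOXA1_E2 and 24.3, 24.9 and 23.3 in siMDC1_E2. EGLN1 in MM330 read 47.8, 44.7 and 51.1 CPM in siNT, 36.2, 38.6 and 40.6 in siNT_E2, 41.3, 43.6 and 42.1 in siER_E2, 48.2, 41.5 and 40.8 in siFOXA1_E2 and 43.3, 43.9 and 43.5 in siMDC1_E2. EGLN1 in HCC1428 read 53.6, 56.4 and 53.1 CPM in siNT, 52.3, 51.0 and 54.3 in siNT_E2, 59.0, 61.5 and 57.3 in siER_E2, 62.9, 62.3 and 59.0 in siFOXA1_E2 and 59.1, 61.6 and 61.3 in siMDC1_E2. EGLN1 varied far less than EGLN3. EGLN1 rose with the FOXA1 siRNA in MM134 and HCC1428 and did not pass the test in MM330, with log2 fold changes of 0.53 ± 0.06, 0.17 ± 0.07 and 0.19 ± 0.04 (adjusted p = 2.8e-07, 0.055 and 0.00094). EGLN1 rose with the MDC1 siRNA in MM134 and HCC1428 and did not pass the test in MM330, with log2 fold changes of 0.33 ± 0.07, 0.17 ± 0.07 and 0.20 ± 0.04 (adjusted p = 0.00019, 0.1 and 0.0014). Of the other 6 comparisons, EGLN1 was called with E2 in MM330 (-0.29 ± 0.07, adjusted p = 0.0049) and with the ESR1 siRNA in HCC1428 (0.14 ± 0.04, adjusted p = 0.0093). Without both libraries, EGLN1 of MM330 was also called with the ESR1 (0.14) and MDC1 siRNAs (0.18). Per kilobase, EGLN3 made up 75.5%, 47.8% and 15.8% of both hydroxylases in siNT of the 3 lines and 43.2%, 17.5% and 9.39% in siNT_E2. In siMDC1_E2 the share was 74.0%, 17.1% and 7.83%. The genes whose group means were most like those of EGLN3 over the 15 groups, among 14933 genes tested in all lines, were YIPF5 (Pearson r = 0.906), RIPOR3 (Pearson r = 0.905), ARFGEF3 (Pearson r = 0.889), RF00003 (Pearson r = 0.885) and PACSIN2 (Pearson r = 0.882), as a description of groups that share lines and libraries. EGLN1 with the ESR1 siRNA in HCC1428 lost its call without siER_E2 2 (0.11, adjusted p = 0.064) and with the lower-pseudogene libraries alone.

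BHLHE40 encodes a transcriptional repressor that hypoxia induces. In MM134, BHLHE40 read 37.8, 37.1 and 36.2 CPM in siNT and 87.5, 88.1 and 89.0 CPM in siNT_E2. In MM330, BHLHE40 read 145, 140.5 and 155 CPM in siNT and 168, 179 and 179.6 CPM in siNT_E2. In HCC1428, BHLHE40 read 315, 302 and 322 CPM in siNT and 157, 150.4 and 148 CPM in siNT_E2. The siNT_E2 libraries were above vehicle in both lobular lines and below it in HCC1428, without overlap. BHLHE40 rose with E2 in MM134 and MM330 and fell in HCC1428, with log2 fold changes of 1.24 ± 0.04, 0.28 ± 0.05 and -1.03 ± 0.04 (adjusted p = 3.7e-16, 0.00025 and 1.6e-14). The E2 responses differed from that of HCC1428 by 2.30 ± 0.07 (adjusted p = 5.7e-27) in MM134 and 1.31 ± 0.06 (adjusted p = 1.2e-19) in MM330. BHLHE40 in MM134 read 44.0, 40.3 and 43.7 CPM in siER_E2, 28.3, 32.9 and 31.2 in siFOXA1_E2 and 50, 51.7 and 51.6 in siMDC1_E2. BHLHE40 in MM330 read 118, 114 and 108 CPM in siER_E2, 89.3, 84.5 and 88.4 in siFOXA1_E2 and 112, 118 and 105 in siMDC1_E2. BHLHE40 in HCC1428 read 311, 296 and 280.0 CPM in siER_E2, 159.9, 161 and 161 in siFOXA1_E2 and 199, 200.2 and 199 in siMDC1_E2. The siER_E2 libraries lay nearer to vehicle than to siNT_E2 in MM134 and HCC1428, and below vehicle in MM330. BHLHE40 rose with the ESR1 siRNA in HCC1428 and fell in MM134 and MM330, with log2 fold changes of -1.02 ± 0.04, -0.64 ± 0.05 and 0.93 ± 0.04 (adjusted p = 6.8e-15, 1.8e-08 and 1.3e-13). BHLHE40 fell with the FOXA1 siRNA in MM134 and MM330 and did not pass the test in HCC1428, with log2 fold changes of -1.51 ± 0.04, -1.01 ± 0.05 and 0.05 ± 0.04 (adjusted p = 1e-17, 5.9e-11 and 0.27). BHLHE40 rose with the MDC1 siRNA in HCC1428 and fell in MM134 and MM330, with log2 fold changes of -0.80 ± 0.04, -0.66 ± 0.05 and 0.39 ± 0.04 (adjusted p = 4.5e-13, 6.1e-08 and 2.4e-07).

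NDRG1 encodes a stress-responsive protein and is widely used as a hypoxia-induced gene. NDRG1 in MM134 read 24.7, 23.9 and 25.6 CPM in siNT, 22.6, 22.4 and 21.8 in siNT_E2, 26.2, 24.6 and 25.6 in siER_E2, 21.2, 21.7 and 25.2 in siFOXA1_E2 and 11.4, 12.2 and 13.9 in siMDC1_E2. NDRG1 in MM330 read 196, 205 and 287 CPM in siNT, 119, 129.9 and 127 in siNT_E2, 100.5, 109 and 102 in siER_E2, 217, 141 and 141 in siFOXA1_E2 and 94.5, 92.8 and 92.5 in siMDC1_E2. NDRG1 in HCC1428 read 388, 383 and 394 CPM in siNT, 183, 191 and 179.7 in siNT_E2, 336, 317 and 318 in siER_E2, 152, 156 and 152 in siFOXA1_E2 and 188, 188 and 185 in siMDC1_E2. The siNT_E2 libraries were below vehicle in each line without overlap, and NDRG1 of MM134 was lower in every library than any library of the other lines. NDRG1 fell with E2 in all 3 lines, with log2 fold changes of -0.16 ± 0.07, -0.85 ± 0.15 and -1.06 ± 0.03 (adjusted p = 0.044, 0.00042 and 2.6e-15). The MM330 value with E2 was -0.67 (adjusted p = 1.1e-08) without both libraries. NDRG1 rose with the ESR1 siRNA in MM134 and HCC1428 and did not pass the test in MM330, with log2 fold changes of 0.22 ± 0.07, -0.28 ± 0.15 and 0.78 ± 0.03 (adjusted p = 0.0077, 0.19 and 3.8e-13). Without both libraries it was called lower in MM330 with the ESR1 (-0.27) and MDC1 siRNAs (-0.43). NDRG1 rose with the FOXA1 siRNA in MM330, fell in HCC1428 and did not pass the test in MM134, with log2 fold changes of 0.04 ± 0.07, 0.41 ± 0.15 and -0.31 ± 0.03 (adjusted p = 0.67, 0.036 and 2.7e-07). The MM330 value with the FOXA1 siRNA was 0.13 (adjusted p = 0.016) without both libraries. NDRG1 fell with the MDC1 siRNA in MM134 and did not pass the test in MM330 and HCC1428, with log2 fold changes of -0.84 ± 0.07, -0.43 ± 0.15 and 0.01 ± 0.03 (adjusted p = 1.4e-09, 0.059 and 0.89). NDRG1 with E2 in MM134 lost its call without siNT 1 or 3 or siNT_E2 1, 2 or 3 (-0.14, adjusted p = 0.15) and with DESeq2, no filter on low counts or RLE scaling. NDRG1 with the FOXA1 siRNA in MM330 lost its call without siNT_E2 1, 2 or 3 or siFOXA1_E2 1 (0.14, adjusted p = 0.31) and with DESeq2, limma-voom, the lower-pseudogene libraries alone or the compared libraries alone.

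BNIP3 and BNIP3L encode receptors for the removal of mitochondria. BNIP3 in MM134 read 55.6, 54.6 and 52.7 CPM in siNT, 59.9, 65.0 and 66.5 in siNT_E2, 53.3, 53.3 and 54.2 in siER_E2, 59.4, 61.6 and 60.8 in siFOXA1_E2 and 35.8, 36.4 and 37.9 in siMDC1_E2. BNIP3 in MM330 read 79.0, 84.2 and 131 CPM in siNT, 44.2, 51.0 and 50.1 in siNT_E2, 51.1, 50.2 and 50.6 in siER_E2, 82.3, 53.9 and 53.5 in siFOXA1_E2 and 42.5, 42.7 and 38.9 in siMDC1_E2. BNIP3 in HCC1428 read 82.1, 77.4 and 84.7 CPM in siNT, 79.4, 77.9 and 79.1 in siNT_E2, 82.7, 76.2 and 72.3 in siER_E2, 71.0, 73.4 and 72.8 in siFOXA1_E2 and 57.1, 63.3 and 60.7 in siMDC1_E2. In MM330 all vehicle libraries were above all siNT_E2 libraries, the replicate that stood apart most of all, and in HCC1428 they overlapped. BNIP3 rose with E2 in MM134, fell in MM330 and did not pass the test in HCC1428, with log2 fold changes of 0.22 ± 0.04, -1.0 ± 0.17 and -0.03 ± 0.05 (adjusted p = 6.7e-05, 0.00032 and 0.61). It was -0.75 (adjusted p = 1.2e-07) in MM330 without both libraries. BNIP3 fell with the MDC1 siRNA in MM134 and HCC1428 and did not pass the test in MM330, with log2 fold changes of -0.81 ± 0.04, -0.23 ± 0.18 and -0.39 ± 0.05 (adjusted p = 2.9e-13, 0.44 and 4.8e-06). BNIP3 was also called with the ESR1 siRNA in MM134 (-0.23 ± 0.04, adjusted p = 4.4e-05) and with the FOXA1 siRNA in HCC1428 (-0.16 ± 0.05, adjusted p = 0.009). Without both libraries, BNIP3 of MM330 was also called with the MDC1 siRNA (-0.23). BNIP3 with the FOXA1 siRNA in HCC1428 lost its call without siNT_E2 3 or 4 (-0.13, adjusted p = 0.061).

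BNIP3L in MM134 read 30.9, 28.4 and 27.1 CPM in siNT, 31.0, 29.4 and 28.5 in siNT_E2, 26.7, 30.3 and 28.1 in siER_E2, 31.5, 32.4 and 33.1 in siFOXA1_E2 and 36.6, 36.0 and 34.6 in siMDC1_E2. BNIP3L in MM330 read 24.8, 25.7 and 32.7 CPM in siNT, 28.1, 28.1 and 24.0 in siNT_E2, 18.3, 17.4 and 16.1 in siER_E2, 59.5, 61.4 and 60.4 in siFOXA1_E2 and 31.6, 36.2 and 32.7 in siMDC1_E2. BNIP3L in HCC1428 read 15, 16.1 and 14.8 CPM in siNT, 13.3, 12.8 and 13.2 in siNT_E2, 15.3, 15.6 and 14.7 in siER_E2, 22.6, 20.3 and 21.9 in siFOXA1_E2 and 15.2, 15.8 and 14.8 in siMDC1_E2. The siFOXA1_E2 libraries were above those of siNT_E2 in each line, most widely in MM330. BNIP3L rose with the FOXA1 siRNA in all 3 lines, with log2 fold changes of 0.13 ± 0.06, 1.17 ± 0.09 and 0.69 ± 0.06 (adjusted p = 0.046, 1.5e-08 and 3.5e-08). BNIP3L rose with the MDC1 siRNA in all 3 lines, with log2 fold changes of 0.25 ± 0.06, 0.32 ± 0.09 and 0.21 ± 0.07 (adjusted p = 0.00046, 0.019 and 0.019). BNIP3L rose with the ESR1 siRNA in HCC1428, fell in MM330 and did not pass the test in MM134, with log2 fold changes of -0.04 ± 0.06, -0.63 ± 0.10 and 0.18 ± 0.07 (adjusted p = 0.53, 6e-05 and 0.028). With E2, BNIP3L was called in HCC1428 alone (-0.21 ± 0.07, adjusted p = 0.011). BNIP3L with E2 in HCC1428 lost its call without siNT 2 (-0.17, adjusted p = 0.059) and with the lower-pseudogene libraries alone or no filter on low counts. BNIP3L with the ESR1 siRNA in HCC1428 lost its call without siNT_E2 2 or siER_E2 1 or 2 (0.16, adjusted p = 0.092) and with DESeq2, the lower-pseudogene libraries alone or no filter on low counts. BNIP3L with the MDC1 siRNA in HCC1428 lost its call without siMDC1_E2 2 (0.19, adjusted p = 0.076) and with DESeq2 or no filter on low counts. BNIP3L with the FOXA1 siRNA in MM134 lost its call without siNT_E2 2 or 3 or siFOXA1_E2 1, 2 or 3 (0.10, adjusted p = 0.17) and with DESeq2, the lower-pseudogene libraries alone, no filter on low counts or RLE scaling. BNIP3L with the MDC1 siRNA in MM330 lost its call without siNT_E2 3 or siMDC1_E2 2 (0.24, adjusted p = 0.11).

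VEGFA and ADM encode secreted factors that act on vessels. VEGFA in MM134 read 38.3, 35.9 and 38.0 CPM in siNT, 40.5, 38.8 and 41.8 in siNT_E2, 42.7, 36.8 and 38.3 in siER_E2, 36.2, 37.9 and 37.8 in siFOXA1_E2 and 32.9, 35.3 and 36.4 in siMDC1_E2. VEGFA in MM330 read 21.8, 20.7 and 29.2 CPM in siNT, 22.6, 21.7 and 21.2 in siNT_E2, 18.6, 15.8 and 14.6 in siER_E2, 41.2, 36.5 and 39.5 in siFOXA1_E2 and 24.0, 28.5 and 27.0 in siMDC1_E2. VEGFA in HCC1428 read 152, 154 and 157 CPM in siNT, 121, 119.9 and 111 in siNT_E2, 193, 176 and 176 in siER_E2, 109.9, 100.0 and 103 in siFOXA1_E2 and 127, 119.6 and 123 in siMDC1_E2. VEGFA was highest in HCC1428, where the siER_E2 libraries were above all others. VEGFA fell with E2 in HCC1428 and did not pass the test in MM134 and MM330, with log2 fold changes of 0.10 ± 0.05, -0.10 ± 0.12 and -0.38 ± 0.04 (adjusted p = 0.11, 0.6 and 6.4e-07). VEGFA rose with the ESR1 siRNA in HCC1428, fell in MM330 and did not pass the test in MM134, with log2 fold changes of -0.01 ± 0.05, -0.42 ± 0.12 and 0.60 ± 0.04 (adjusted p = 0.84, 0.01 and 1.4e-09). VEGFA rose with the FOXA1 siRNA in MM330, fell in HCC1428 and did not pass the test in MM134, with log2 fold changes of -0.11 ± 0.05, 0.84 ± 0.11 and -0.20 ± 0.04 (adjusted p = 0.088, 1.1e-05 and 0.00092). The FOXA1 siRNA effect on VEGFA differed between MM330 and HCC1428 by 1.01 ± 0.11 (adjusted p = 1.2e-09). With the MDC1 siRNA, VEGFA was called in MM134 alone (-0.22 ± 0.05, adjusted p = 0.0011). Without both libraries, VEGFA of MM330 was also called with the MDC1 siRNA (0.28). VEGFA with the ESR1 siRNA in MM330 lost its call without siER_E2 3 (-0.36, adjusted p = 0.053) and with the lower-pseudogene libraries alone.

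ADM in MM134 read 2.06, 2.71 and 1.85 CPM in siNT, 1.37, 1.56 and 1.82 in siNT_E2, 1.63, 1.43 and 1.74 in siER_E2, 3.65, 4.06 and 4.88 in siFOXA1_E2 and 1.03, 1.16 and 1.5 in siMDC1_E2. ADM in MM330 read 0.0378, 0.170 and 0.0816 CPM in siNT, 0, 0.0355 and 0.106 in siNT_E2, 0.111, 0.138 and 0.0634 in siER_E2, 0.234, 0.129 and 0.242 in siFOXA1_E2 and 0.194, 0.144 and 0.203 in siMDC1_E2. ADM in HCC1428 read 1.73, 2.39 and 2.36 CPM in siNT, 2.14, 2.95 and 2.31 in siNT_E2, 2.14, 1.92 and 2.46 in siER_E2, 2.10, 1.83 and 1.2 in siFOXA1_E2 and 1.85, 1.73 and 1.95 in siMDC1_E2. ADM was under 5 CPM in all 45 libraries, and its siFOXA1_E2 libraries in MM134 were above all others of that line. ADM rose with the FOXA1 siRNA in MM134 and fell in HCC1428, with log2 fold changes of 1.42 ± 0.19 and -0.55 ± 0.21 in MM134 and HCC1428 (adjusted p = 1.3e-06 and 0.038). ADM also fell with E2 in MM134 (-0.51 ± 0.20, adjusted p = 0.035). ADM with the FOXA1 siRNA in HCC1428 lost its call without siNT_E2 3 or 4 or siFOXA1_E2 2 or 3 (-0.37, adjusted p = 0.19) and with DESeq2, no filter on low counts or the compared libraries alone. ADM with E2 in MM134 lost its call without siNT 2 or siNT_E2 1 or 2 (-0.33, adjusted p = 0.21) and with DESeq2 or no filter on low counts.

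P4HA1 and P4HA2 encode subunits of the collagen prolyl hydroxylases. P4HA2 in MM134 read 41.2, 40.2 and 39.9 CPM in siNT, 61.4, 65.2 and 65.9 in siNT_E2, 59.5, 57.4 and 59.2 in siER_E2, 113, 117 and 128 in siFOXA1_E2 and 66.4, 73.5 and 67.5 in siMDC1_E2. P4HA2 in MM330 read 91.2, 87.2 and 96.5 CPM in siNT, 103, 109 and 97.8 in siNT_E2, 96.7, 102 and 95.4 in siER_E2, 125, 122 and 122 in siFOXA1_E2 and 118, 116 and 113 in siMDC1_E2. P4HA2 in HCC1428 read 24.6, 26.2 and 25 CPM in siNT, 34.4, 35.4 and 34.3 in siNT_E2, 31.8, 31.0 and 30.6 in siER_E2, 27.4, 25.4 and 26.0 in siFOXA1_E2 and 34.5, 32.8 and 37.6 in siMDC1_E2. The siNT_E2 libraries were above vehicle in each line, and in MM134 the siFOXA1_E2 libraries were highest of all. P4HA2 rose with E2 in all 3 lines, with log2 fold changes of 0.65 ± 0.05, 0.19 ± 0.04 and 0.47 ± 0.05 (adjusted p = 1.1e-10, 0.0045 and 5.2e-07). P4HA2 rose with the FOXA1 siRNA in MM134 and MM330 and fell in HCC1428, with log2 fold changes of 0.90 ± 0.04, 0.25 ± 0.04 and -0.43 ± 0.06 (adjusted p = 7.6e-14, 0.00016 and 1.7e-06). The FOXA1 siRNA effect on P4HA2 differed from that of HCC1428 by 1.30 ± 0.07 (adjusted p = 5.4e-18) in MM134 and 0.66 ± 0.07 (adjusted p = 1.7e-09) in MM330. P4HA1 had group means of 32.4 to 65.4 CPM and was called in 3 of 12 comparisons, all lower: -0.17 ± 0.04 (adjusted p = 0.0016) and -0.28 ± 0.06 (adjusted p = 4e-04) with the FOXA1 siRNA in MM134 and HCC1428 and -0.19 ± 0.06 (adjusted p = 0.0075) with the ESR1 siRNA in HCC1428.  Without both libraries, P4HA1 of MM330 was called lower with E2 (-0.22) and with the ESR1 (-0.16) and FOXA1 siRNAs (-0.37). P4HA1 with the ESR1 siRNA in HCC1428 lost its call without siNT_E2 4 (-0.14, adjusted p = 0.094) and with the lower-pseudogene libraries alone or the compared libraries alone. P4HA2 with E2 in MM330 lost its call with the lower-pseudogene libraries alone (0.16, adjusted p = 0.11).

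KDM3A encodes a histone demethylase and MXI1 an antagonist of MYC. KDM3A in MM134 read 74.3, 75.7 and 76.1 CPM in siNT, 57.1, 57.7 and 61.9 in siNT_E2, 77.3, 76.9 and 74.2 in siER_E2, 59.5, 57.0 and 59.0 in siFOXA1_E2 and 56.3, 61.2 and 62.3 in siMDC1_E2. KDM3A in MM330 read 50.5, 48.0 and 56.9 CPM in siNT, 42.7, 46.1 and 46.0 in siNT_E2, 36.3, 41.3 and 40.4 in siER_E2, 58.8, 57.5 and 54.6 in siFOXA1_E2 and 41.2, 40.8 and 41.8 in siMDC1_E2. KDM3A in HCC1428 read 129, 122 and 125 CPM in siNT, 73.5, 73.7 and 82.1 in siNT_E2, 125, 125 and 128 in siER_E2, 105, 115 and 101 in siFOXA1_E2 and 85.9, 84.5 and 75.8 in siMDC1_E2. KDM3A was lower with E2 in each line without overlap. KDM3A fell with E2 in all 3 lines, with log2 fold changes of -0.37 ± 0.04, -0.18 ± 0.06 and -0.70 ± 0.05 (adjusted p = 4.5e-08, 0.044 and 1.6e-09). Without both libraries the MM330 value was -0.12 (adjusted p = 0.14), which did not pass the test. KDM3A rose with the ESR1 siRNA in MM134 and HCC1428 and fell in MM330, with log2 fold changes of 0.40 ± 0.04, -0.19 ± 0.07 and 0.69 ± 0.05 (adjusted p = 1.3e-08, 0.031 and 2.5e-09). KDM3A rose with the FOXA1 siRNA in MM330 and HCC1428 and did not pass the test in MM134, with log2 fold changes of 0.00 ± 0.04, 0.34 ± 0.06 and 0.45 ± 0.05 (adjusted p = 0.97, 3e-04 and 9.4e-07). KDM3A passed the test in no line with the MDC1 siRNA. KDM3A with E2 in MM330 lost its call without siNT 1 or 3 or siNT_E2 1, 2 or 3 (-0.12, adjusted p = 0.24) and with the lower-pseudogene libraries alone. KDM3A with the ESR1 siRNA in MM330 lost its call without siNT_E2 2 or 3 or siER_E2 1 (-0.14, adjusted p = 0.15).

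MXI1 in MM134 read 15.2, 14.2 and 14.9 CPM in siNT, 13.5, 14.0 and 13.4 in siNT_E2, 21.3, 21.6 and 21.1 in siER_E2, 14.1, 13.0 and 12.2 in siFOXA1_E2 and 15.3, 13.7 and 15 in siMDC1_E2. MXI1 in MM330 read 15.2, 16.1 and 18.1 CPM in siNT, 12.6, 15.3 and 12.8 in siNT_E2, 17.2, 16.0 and 15.6 in siER_E2, 21.4, 21.5 and 19.9 in siFOXA1_E2 and 19.5, 19.4 and 18.1 in siMDC1_E2. MXI1 in HCC1428 read 32.2, 30.8 and 34.7 CPM in siNT, 25.4, 27.0 and 25.2 in siNT_E2, 36.5, 35 and 36.6 in siER_E2, 35.1, 33.4 and 37.9 in siFOXA1_E2 and 29.8, 31.1 and 26.4 in siMDC1_E2. In each line all siER_E2 libraries of MXI1 were above all siNT_E2 libraries. MXI1 rose with the ESR1 siRNA in all 3 lines, with log2 fold changes of 0.67 ± 0.07, 0.26 ± 0.08 and 0.45 ± 0.06 (adjusted p = 1.9e-08, 0.024 and 9.2e-06). MXI1 fell with E2 in MM330 and HCC1428 and did not pass the test in MM134, with log2 fold changes of -0.12 ± 0.07, -0.26 ± 0.08 and -0.32 ± 0.07 (adjusted p = 0.15, 0.028 and 0.00037). MXI1 rose with the FOXA1 siRNA in MM330 and HCC1428 and did not pass the test in MM134, with log2 fold changes of -0.05 ± 0.07, 0.63 ± 0.08 and 0.42 ± 0.07 (adjusted p = 0.55, 8.7e-06 and 2e-05). MXI1 rose with the MDC1 siRNA in MM330 and did not pass the test in MM134 and HCC1428, with log2 fold changes of 0.09 ± 0.07, 0.48 ± 0.08 and 0.17 ± 0.07 (adjusted p = 0.3, 0.00046 and 0.066). Without both libraries MXI1 in MM330 was at -0.20 (adjusted p = 0.089) with E2, no longer called. ANKRD37, a small hypoxia target whose exons overlap UFSP2 on the opposite strand over 35.2% of their length, had group means from 0.615 to 11.2 CPM. ANKRD37 fell with E2 in MM330 and HCC1428 and did not pass the test in MM134, with log2 fold changes of -0.32 ± 0.20, -0.94 ± 0.18 and -0.89 ± 0.32 (adjusted p = 0.18, 0.00061 and 0.023). ANKRD37 with E2 in HCC1428 lost its call without siNT 3 or siNT_E2 2 or 4 (-0.57, adjusted p = 0.17). MXI1 with E2 in MM330 lost its call without siNT 2 or 3 or siNT_E2 1 or 3 (-0.20, adjusted p = 0.14) and with the lower-pseudogene libraries alone or no filter on low counts. MXI1 with the ESR1 siRNA in MM330 lost its call without siNT_E2 1 or 3 or siER_E2 1 (0.22, adjusted p = 0.1) and with the lower-pseudogene libraries alone.

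Genes of the same pathways outside the members were read in 4 lists, beside the shares and medians over all genes given above. Of the oxygen-sensing machinery, E2 gave 5 higher and 4 lower of 14 in MM134 (median 0.07), 2 higher and 1 lower of 14 in MM330 (median -0.04) and 4 higher and 6 lower of 14 in HCC1428 (median 0.04). SIAH2, a ligase that acts on the EGLN hydroxylases, had log2 fold changes with E2 of 1.69, 1.88 and 1.16, and CITED2, a competitor of the factors for their coactivator, of -0.52, -1.10 and -1.38, all called. Of further hypoxia targets, E2 gave 6 higher and 11 lower of 22 in MM134 (median -0.13), 4 higher and 11 lower of 22 in MM330 (median -0.16) and 7 higher and 10 lower of 22 in HCC1428 (median -0.07). DDIT4, an inhibitor of growth signalling, fell with E2 in all lines (-1.34, -1.41 and -1.42 on the log2 scale) and rose with the FOXA1 siRNA (1.98, 2.46 and 1.87). The secreted glycoprotein gene STC2 went apart, with 3.13, 1.00 and -1.24 with E2, all called. Of other glycolysis and pyruvate genes, E2 gave 6 higher and 6 lower of 19 in MM134 (median -0.02), 3 higher and 3 lower of 21 in MM330 (median -0.01) and 7 higher and 5 lower of 20 in HCC1428 (median 0.04). FBP1, which runs the phosphofructokinase step backwards, fell with E2 in all lines (-0.83, -0.48 and -0.41). Of pyruvate dehydrogenase and the citrate cycle, E2 gave 15 higher and 1 lower of 21 in MM134 (median 0.23), 1 higher and 3 lower of 21 in MM330 (median -0.03) and 8 higher and 2 lower of 21 in HCC1428 (median 0.08). With the ESR1 siRNA the same list had 2 higher and 15 lower of 21 in MM134 (median -0.21), 3 higher and 3 lower of 21 in MM330 (median 0.01) and 1 higher and 10 lower of 21 in HCC1428 (median -0.15). SUCLG2, a subunit of the succinate-forming enzyme, was called lower with E2 in all lines (-0.45, -0.28 and -0.25).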

How the data were processed

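RNA was sequenced from 45 libraries (15 groups of 3). The authors deposited 1 table of raw read counts per gene symbol, without normalization. STAR 2.6.0a, limma and the hg38 genome are named per the submitters' processing notes; the counting tool, gene annotation and use of strand are not given in the sources used here, so reads shared with pseudogene copies or overlapping genes could not be assigned. The table lists 57353 symbols, of which 27 had been turned into dates, and no column was without a sample.

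Each line's 15 libraries entered 1 model in edgeR 4.0.16 under R 4.3.3 (filterByExpr, TMM scaling, quasi-likelihood test, Benjamini-Hochberg adjustment over all genes tested). Calls needed an adjusted p below 0.05. Line differences came from interaction contrasts over all 45 libraries. Levels are CPM (counts scaled to a common library total) from TMM-scaled totals over all libraries, and per-kilobase levels use summed exon lengths of GENCODE 29 on GRCh38. Promoters are RefSeq's. The scripts were tested on simulated data. Alternatives were RLE scaling, no filter, a replicate block, DESeq2 1.42.0, limma-voom (limma 3.58.1), the compared libraries only, leaving out each library, libraries of the lower pseudogene share only, and members summed with their copies; a fit without the MM330 libraries that stood apart was added after seeing the data. Members and lists were chosen with earlier results of these data known. Named members were a panel plus, per comparison, the 2 largest rises and falls among called members at 5 CPM or more without overlap of libraries.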

Additional observations from a re-analysis of the deposited data

Results flagged for a closer look

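Each member given here changed in opposite directions in a lobular line and in HCC1428, with a call in both lines and a called difference between them by the interaction contrast of edgeR. Values are differences in log2 fold change, the lobular line minus HCC1428, over 3 libraries per group, and a positive value means a more positive change in the lobular line. Calls within a line that were lost when a library was left out or under another setting, the replicate block aside, are named after each contrast. No explanation was tested.

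For E2 against vehicle, MM134 minus HCC1428 gave 0.32 for HK1, -1.11 for ENO2, -0.39 for HIF1A and 2.30 for BHLHE40. MM330 minus HCC1428 gave 0.35 for HK1, -0.78 for GPI, -0.33 for PFKM, -0.98 for PGK1, -0.62 for ENO1, -1.46 for LDHA, -1.08 for SLC16A3 and 1.31 for BHLHE40. Lost calls were those of ENO2 in MM134, GPI and PFKM in MM330, and ENO1, PFKM and HIF1A in HCC1428.

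For the ESR1 siRNA, MM134 minus HCC1428 gave -0.31 for HK1, 0.34 for HIF1A and -2.01 for BHLHE40. The difference for MM330 was -0.46 for HK1, 2.18 for ALDOC, -1.05 for VEGFA, -0.84 for BNIP3L, -0.91 for KDM3A and -1.60 for BHLHE40. Lost calls were those of HIF1A in MM134, VEGFA and KDM3A in MM330, and BNIP3L in HCC1428.

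For the FOXA1 siRNA, MM134 minus HCC1428 gave 0.32 for PFKL, 0.73 for GAPDH, 0.36 for PGK1, 1.93 for ADM and 1.30 for P4HA2. The difference for MM330 was 1.01 for VEGFA, 0.67 for NDRG1 and 0.66 for P4HA2.

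For the MDC1 siRNA, the difference for MM134 was 0.30 for PFKL and -1.18 for BHLHE40, and that for MM330 was 1.31 for ALDOC and -1.05 for BHLHE40. All 4 contrasts with an siRNA or E2 share the siNT_E2 libraries of a line, so values for 1 gene across contrasts are not independent.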

How the results depend on the processing

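The number of members called stayed within 1.5 times its value under each alternative run, with 1 exception. In MM330 with the MDC1 siRNA, 13 members were called, against 23 without both libraries that stood apart, 22 with only the compared libraries, 20 without the filter on low counts and 8 with only libraries of the lower pseudogene share; the cause was not tested. ALDOA in HCC1428 turned direction with only libraries of the lower pseudogene share, to -0.31 (adjusted p = 0.0026) with E2 and 0.27 (adjusted p = 0.01) with the ESR1 siRNA, and had no call with all libraries. No other log2 fold change of a called member changed sign under the alternatives. Of 288 calls on single members (the 12 comparisons within lines), 4 were lost with RLE scaling, 13 with DESeq2, 17 without the filter, 11 with only the compared libraries and 30 with only libraries of the lower pseudogene share. Limma-voom lost 3, summing members with their copies lost 0, and the replicate block lost 19. Leaving out 1 library at a time lost 152 of 1728.

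Leaving out 1 library gave ranges of called members, in the order E2, ESR1, FOXA1 and MDC1 siRNA, of 23 to 25, 25 to 29, 25 to 28 and 20 to 23 in MM134, 18 to 21, 14 to 15, 18 to 24 and 9 to 12 in MM330, and 27 to 31, 27 to 31, 25 to 28 and 17 to 22 in HCC1428. With the replicate number as a block, members called were 27, 28, 29 and 22 in MM134, 20, 15, 18 and 14 in MM330, and 28, 28, 26 and 15 in HCC1428 (where siNT_E2 replicate 4, alone with its number, drops out), in that order. Correlations between same-numbered libraries ran from -0.576 to 0.737 (medians -0.006 to 0.009), too wide to tell if numbers pair the libraries. At these library totals, counting error weighs most on the members near 0 CPM.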
